A study of Homo sapiens with 16 samples.

Results

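The epithelial-mesenchymal transition of HMLER clone C2 was described by comparing the mesenchymal cells of the clone, C2-Mes, with its epithelial cells, C2-Epi, across all genes. HMLER is a human mammary epithelial line that was immortalised and transformed with introduced genes, among them TERT and an oncogenic HRAS. The members were chosen by the group in their titles: 2 C2-Mes and 2 C2-Epi libraries of RNA-seq counts per gene, over 60448 genes, which make 4 of the 16 libraries of the series. Neither C2 group is labelled with a guide, and both have the genotype wild type, which here means not edited. By its labels C2-Epi is plastic and epithelial, and C2-Mes is the mesenchymal form of the clone. The other groups are clone C1 and its edited derivatives: C1-sgEED-Mes and C1-sgEED-Epi (guide against EED), C1-sgKMT2D-Mes and C1-sgKMT2D-Epi (guide against KMT2D), C1-sgControl and unedited C1, with 2 libraries each. All groups were grown in the same medium with insulin, EGF and hydrocortisone, and RNA was taken from cultured or sorted cells, though which libraries were sorted is not given. C2 is labelled with a single clone name, so a difference from other groups can be a property of that clone. Whether the 2 libraries of a group came from separate cultures is not stated. The p-values then measure only the spread between replicate libraries, pooled over the groups fitted, and this spread may be technical.

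The C2-Mes libraries hold 18872124 counts (replicate 1) and 31950649 counts (replicate 2), and the C2-Epi libraries 25130084 (replicate 1) and 23978627 (replicate 2). The names in the headers of the C2-Mes files differ in kind, and that of replicate 1 contains the words "re.prep". The C2-Mes libraries stood apart from each other: across genes their log2 levels correlated with r = 0.967 and the differences had an SD of 0.89, against r = 0.993 and an SD of 0.399 in C2-Epi. Of 11024 genes with at least 5 CPM (counts scaled to a common library total, with TMM factors) in C2-Mes, 157 (1.42%) differed over 4-fold between its libraries, 92 higher in replicate 1 (0.835%) and 65 higher in replicate 2 (0.59%), while in each other group of the series at most 12 genes (0.11%) did. Mitochondrial transcripts made up 12.5% and 8.15% of counts in C2-Mes, against 7.93% and 8.08% in C2-Epi. Each library is therefore given by its own value throughout, replicate 1 before replicate 2.

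In an epithelial-mesenchymal transition, cells lose the junctions, keratins and apical-basal polarity that hold an epithelial sheet together and gain a fibrillar matrix, vimentin filaments and the traits of motile cells. It is driven by repressors of the ZEB, SNAIL and TWIST families, which bind E-box sequences in promoters of epithelial genes, and is restrained by microRNAs of the miR-200 family and miR-205, which target the ZEB transcripts. In the mammary gland, basal epithelial cells already carry some contractile and matrix genes.

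Of 18285 genes tested, 3845 rose in C2-Mes (21% of those tested) and 3401 fell (18.6%; edgeR quasi-likelihood test over all 16 libraries, Benjamini-Hochberg adjusted p under 0.05). Over 4-fold changes were called for 1285 genes that rose and 1246 that fell, and over 64-fold for 279 and 234. In every gene that fell, and in 3810 of the 3845 that rose, both C2-Mes libraries lay beyond both C2-Epi libraries. Over all 18285 tested genes, called or not, both lay above in 5738 and both below in 5680. Because the C2-Mes libraries vary more than the rest, 2 stricter fits stand beside the counts: limma with library weights, in which C2-Mes libraries weighed 0.199 and 0.212 and the others between 0.534 and 2.35, gave 2691 genes that rose (14.7%) and 1836 that fell (10%), and a fit of the 4 C2 libraries alone gave 1812 (11.3% of 16009) and 1549 (9.68%). Of the genes called in the fit of all libraries, 2691 that rose and 1818 that fell were also called with library weights. A fit that keeps 1 C2-Mes library takes its spread from the other groups, whose libraries lay closer together. Calls from such a fit are therefore no test of that library. Below, "rose" and "fell" refer to the fit of all 16 libraries, and calls that a stricter fit or the loss of 1 library ended are named. The counts of a list are to be set against the 21% and 18.6% of all tested genes. In these bulk libraries, fewer cells of a type and less RNA per cell cannot be told apart.

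**Figure D1:**
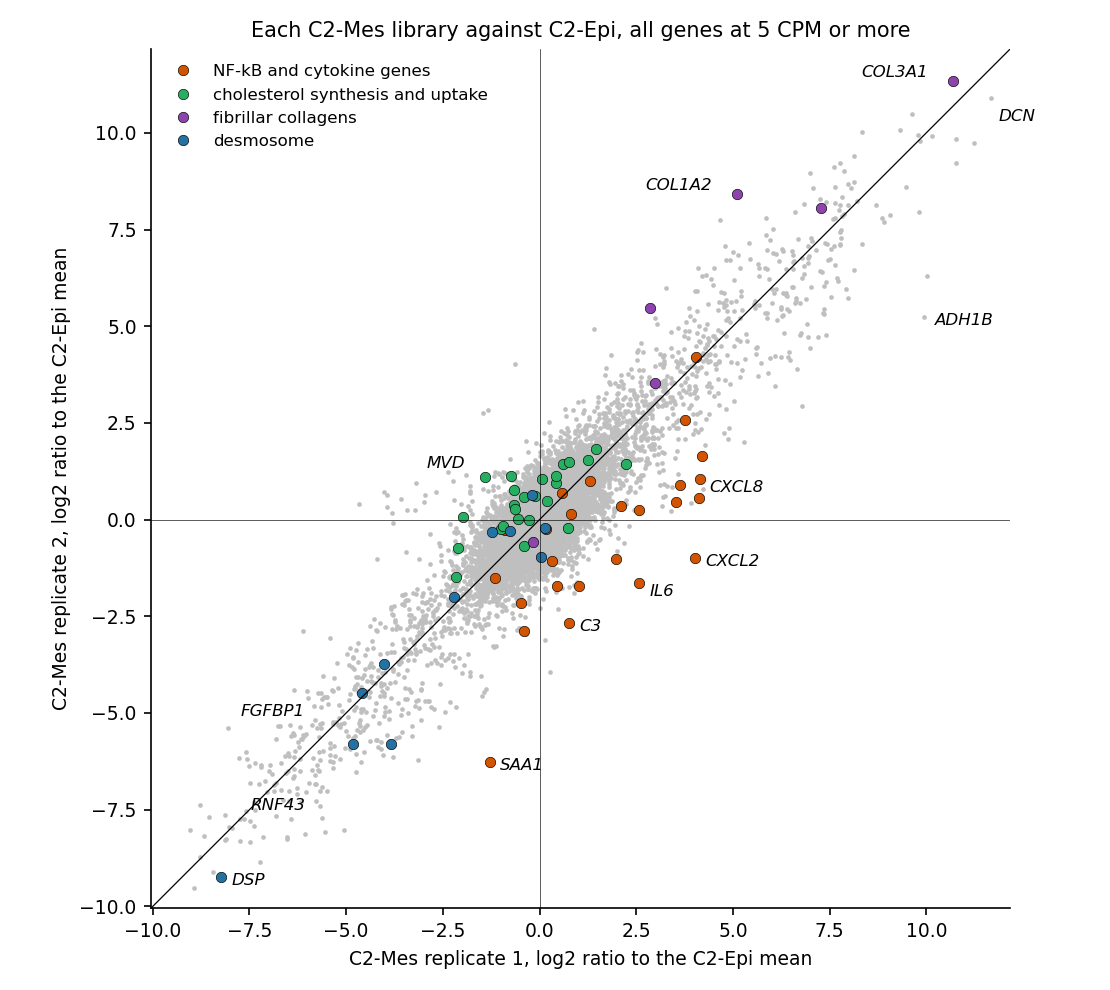
Log2 ratio of each gene in C2-Mes replicate 1 (x axis) and in C2-Mes replicate 2 (y axis) to the mean of the C2-Epi libraries, for the 11602 tested genes with at least 5 CPM in any of the 4 libraries (prior count 2), with members of 4 gene lists in colour and the diagonal as a line. DSP lies low and COL3A1 high in both libraries, whereas most NF-kB genes lie below the diagonal, higher in replicate 1, and several cholesterol genes above it.

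The labelled states were checked on 6 of the defining markers. CDH1, which encodes E-cadherin, had 0.934 and 0.607 CPM in C2-Mes, against 211 and 221 CPM in C2-Epi, and EPCAM, an epithelial surface protein, had 1.05 and 0.575 CPM in C2-Mes, against 98.8 and 103 CPM in C2-Epi. ESRP1, the splicing factor of epithelial isoforms, had 1.46 and 0.383 CPM in C2-Mes, against 136 and 149 CPM in C2-Epi. On the mesenchymal side VIM, the intermediate filament vimentin, had 4759.8 and 5858 CPM in C2-Mes, against 858 and 800.0 CPM in C2-Epi, and PRRX1, a mesenchymal homeobox factor, had 104 and 114 CPM in C2-Mes, against 0.0361 and 0.0384 CPM in C2-Epi. KRT14, a basal keratin, had 6.95 and 11 CPM in C2-Mes, against 1273 and 1234 CPM in C2-Epi. In each of these 6 genes both C2-Mes libraries lay beyond both C2-Epi libraries. Not every epithelial marker moved so far: CLDN4, a claudin, had a fitted log2 change of -0.18. Of the leukocyte markers, 0 of 3 tested of 13 members rose and 2 fell (median log2 -1.19; 0 and 0 with library weights, 0 and 0 from 4 libraries). PTPRC, or CD45, and CD3E had 0 counts in both C2-Mes libraries. The summed level of the leukocyte markers was 1.46 and 1.82 CPM in C2-Mes, against 3.83 and 3.76 CPM in C2-Epi. The calls had an adjusted p no higher than 5.36e-09 (VIM).

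Adherens junctions join neighbouring cells through cadherins and catenins, and most of their transcripts fell. Among 12 members tested, 0 rose, 9 fell and 3 did not pass (median log2 -1.53), where 0 rose and 9 fell with library weights, and 0 and 7 in the fit of 4 libraries. CDH3, placental cadherin of basal cells, had 5.43 and 8.88 CPM in C2-Mes, against 252 and 238 CPM in C2-Epi (log2 -5.08). CTNNB1, the beta-catenin of junctions and Wnt signalling, had 264 and 335 CPM in C2-Mes, against 651 and 613 CPM in C2-Epi (log2 -1.08), and CTNND1, which stabilises cadherins, had 178 and 242 CPM in C2-Mes, against 359 and 363 CPM in C2-Epi (log2 -0.78). PERP, a junction protein induced by p63, had 113 and 84.1 CPM in C2-Mes, against 355 and 422 CPM in C2-Epi (log2 -1.98). The catenins had smaller fitted changes than CDH1 and CDH3. CTNNA1, the alpha-catenin that links cadherins to actin, had 333 and 509 CPM in C2-Mes, against 374 and 365 CPM in C2-Epi and did not pass, nor did NECTIN1, a nectin adhesion protein, with 32.4 and 57.2 CPM in C2-Mes, against 69.0 and 61.2 CPM in C2-Epi. Adjusted p of the genes called was at most 7.59e-04 (CTNND1). CTNND1 was not called in the fit of 4 libraries (adjusted p = 0.0648).

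Tight junction and polarity genes fell in part. Among 18 members tested of 23 listed, 0 rose, 11 fell and 7 did not pass (median log2 -1.34), where 0 rose and 10 fell with library weights, and 0 and 8 in the fit of 4 libraries. LSR, which builds tricellular junctions, had 0.876 and 0.607 CPM in C2-Mes, against 32.0 and 28.8 CPM in C2-Epi (log2 -5.40), and MARVELD2, or tricellulin, had 17.9 and 12.3 CPM in C2-Mes, against 44.2 and 48.5 CPM in C2-Epi (log2 -1.62). PATJ, a scaffold of the Crumbs polarity complex, had 6.89 and 7.5 CPM in C2-Mes, against 72.9 and 80.2 CPM in C2-Epi (log2 -3.41). F11R, a junctional adhesion molecule, had 30.5 and 44.7 CPM in C2-Mes, against 105 and 108 CPM in C2-Epi (log2 -1.50). CRB3, the Crumbs protein of epithelia and a gene chosen here after its values were seen, had 0 and 0.128 CPM in C2-Mes, against 4.77 and 4.46 CPM in C2-Epi (log2 -5.74). The claudins CLDN1, CLDN7, CLDN4 and CLDN12 had fitted log2 changes of -1.18, -0.54, -0.18 and 0.25. The plaque and polarity proteins TJP1 and PARD3 did not pass: TJP1 had 198 and 165 CPM in C2-Mes, against 212 and 223 CPM in C2-Epi, and PARD3 had 81.3 and 77.9 CPM in C2-Mes, against 95.8 and 94.4 CPM in C2-Epi. Calls here had an adjusted p of at most 6.71e-06 (MARVELD2).

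Desmosomes anchor keratins at the cell border. Among 13 members tested, 0 rose, 8 fell and 5 did not pass (median log2 -2.25), where 0 rose and 7 fell with library weights, and 0 and 6 in the fit of 4 libraries. DSP, desmoplakin, had 4.09 and 2.01 CPM in C2-Mes, against 1238 and 1284 CPM in C2-Epi (log2 -8.75 ± 0.32, SE). The desmosomal cadherins DSC3 and DSG3 fell with it: DSC3 had 11.1 and 5.52 CPM in C2-Mes, against 296 and 335 CPM in C2-Epi, and DSG3 had 17.7 and 4.53 CPM in C2-Mes, against 243 and 271 CPM in C2-Epi. JUP, or plakoglobin, had 80.5 and 149 CPM in C2-Mes, against 195 and 181 CPM in C2-Epi, and PKP2, a plakophilin, had 60.1 and 83.7 CPM in C2-Mes, against 97.7 and 106 CPM in C2-Epi. The falls of JUP and PKP2 were smaller than those of DSC3 and DSG3. DSG2, the desmoglein of simple epithelia, had 364 and 179 CPM in C2-Mes, against 346 and 361 CPM in C2-Epi, PKP1 had 283 and 224 CPM in C2-Mes, against 269.8 and 249 CPM in C2-Epi and PPL, periplakin, had 83.9 and 152 CPM in C2-Mes, against 98.6 and 94.9 CPM in C2-Epi, and none of these 3 passed. Among the genes called, adjusted p reached 0.0319 (PKP2). The call of JUP was lost in the fit of 4 libraries (adjusted p = 0.210) and on leaving out C2-Epi replicate 1 (0.0522). The call of PKP2 was lost with library weights (adjusted p = 0.101) and in the fit of 4 libraries (0.199) and on leaving out C2-Mes replicate 1 (0.0509) or C2-Epi replicate 2 (0.0739).

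The promoters of 3 junction genes that fell are shown because each holds the E-box CACCTG, or CAGGTG on the other strand, the letters that ZEB and SNAIL factors are known to bind. They run from 250 bases before to 50 bases after the gene's start (RefSeq, GRCh38.p14), and capitals mark every match to the 6 letters on either strand. They were chosen after their values were seen, and other junction genes that fell hold no match in this window, among them LSR, DSC3 and DSG3 (log2 -5.40, -5.27 and -4.57).
CRB3 (chr19:6464021-6464320, + strand): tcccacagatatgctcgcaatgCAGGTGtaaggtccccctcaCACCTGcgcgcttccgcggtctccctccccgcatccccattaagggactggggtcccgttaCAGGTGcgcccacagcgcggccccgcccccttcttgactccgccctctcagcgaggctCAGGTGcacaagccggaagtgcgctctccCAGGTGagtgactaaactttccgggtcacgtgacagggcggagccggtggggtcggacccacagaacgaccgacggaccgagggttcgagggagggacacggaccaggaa
DSP (chr6:7541421-7541720, + strand): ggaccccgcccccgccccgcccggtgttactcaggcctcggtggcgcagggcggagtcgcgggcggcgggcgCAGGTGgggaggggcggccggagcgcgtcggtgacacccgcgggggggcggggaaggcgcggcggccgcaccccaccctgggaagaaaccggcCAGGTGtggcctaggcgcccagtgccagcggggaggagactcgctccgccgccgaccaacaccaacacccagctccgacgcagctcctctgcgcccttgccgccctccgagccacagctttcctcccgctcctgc
PATJ (chr1:61742230-61742529, + strand): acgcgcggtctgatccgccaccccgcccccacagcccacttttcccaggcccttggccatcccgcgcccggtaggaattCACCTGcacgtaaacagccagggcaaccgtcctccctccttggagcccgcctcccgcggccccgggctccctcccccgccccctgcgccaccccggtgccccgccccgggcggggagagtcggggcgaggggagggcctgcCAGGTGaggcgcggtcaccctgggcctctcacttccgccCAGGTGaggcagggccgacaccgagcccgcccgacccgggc
CRB3 holds 5 matches, at -228, -208, -147, -89 and -60 from the start, DSP 2, at -178 and -85, and PATJ 3, at -171, -30 and 9. Of the 12263 tested genes with a promoter in the table, 18.6% hold a match, and of the listed members with one, 1 of 5 adherens junction, 4 of 12 tight junction and 4 of 9 desmosome genes do. The share was 24.8% (595 of 2404) among genes that fell, 15.5% (438 of 2819) among genes that rose and 17.7% (1247 of 7040) among those that did not pass. Among the genes that fell over 64-fold, a threshold chosen after the values were seen, it was 40.4% (59 of 146), against 12.8% (22 of 172) among those that rose over 64-fold. The wider E-box CANNTG, which includes these letters, was found in 63.9%, 59.4% and 60.6% of promoters that fell, rose and did not pass, and in 61% of all. A match describes letters in a window and not a bound site.

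Keratins, the intermediate filaments of epithelia, fell both in the basal and in the simple class. Among 15 members tested of 18 listed, 1 rose, 9 fell and 5 did not pass (median log2 -3.31), where 1 rose and 8 fell with library weights, and 0 and 8 in the fit of 4 libraries. KRT5, the partner of KRT14 in basal cells, had 70.5 and 47.2 CPM in C2-Mes, against 3845 and 3809 CPM in C2-Epi (log2 -6.03). KRT17 and KRT6A, keratins of stressed and wound-edge epithelium, fell as far: KRT17 had 26.0 and 16.5 CPM in C2-Mes, against 2059.8 and 2004 CPM in C2-Epi, and KRT6A had 22.8 and 5.36 CPM in C2-Mes, against 1529 and 1507 CPM in C2-Epi (log2 -6.79). KRT15 had 3.21 and 2.52 CPM in C2-Mes, against 55.3 and 56.2 CPM in C2-Epi. Of the simple keratins, 1 of 6 tested of 7 members rose and 3 fell (median log2 -3.03; 1 and 3 with library weights, 0 and 3 from 4 libraries). KRT7 had 48.8 and 63.5 CPM in C2-Mes, against 461 and 416 CPM in C2-Epi (log2 -2.96), and KRT18, the partner of KRT8, had 44 and 49.3 CPM in C2-Mes, against 412 and 386 CPM in C2-Epi (log2 -3.10). Every call named had an adjusted p of 1.52e-07 (KRT6A) or less.

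Hemidesmosomes fix basal cells to the basement membrane, and transcripts of both receptor and laminin chains fell. Among 9 members tested, 0 rose, 6 fell and 3 did not pass (median log2 -2.95), where 0 rose and 6 fell with library weights, and 0 and 6 in the fit of 4 libraries. The laminin chain LAMA3 had 22.7 and 14.4 CPM in C2-Mes, against 959 and 991 CPM in C2-Epi (log2 -5.73) and the laminin chain LAMB3 had 44.7 and 35.3 CPM in C2-Mes, against 576 and 551 CPM in C2-Epi (log2 -3.82). The receptor chain ITGA6 had 119 and 157 CPM in C2-Mes, against 1042 and 1089 CPM in C2-Epi, and ITGB4 had 166 and 138 CPM in C2-Mes, against 722 and 686 CPM in C2-Epi. The linkers PLEC and DST did not pass: PLEC, or plectin, had 1768 and 1759.8 CPM in C2-Mes, against 1386 and 1285 CPM in C2-Epi, and DST, or dystonin, had 798 and 501 CPM in C2-Mes, against 724 and 894 CPM in C2-Epi. With ITGB4 the highest adjusted p of the named calls was 6.51e-08.

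Regulators of the epithelial state fell nearly as a block. Among 18 members tested of 19 listed, 2 rose, 14 fell and 2 did not pass (median log2 -3.59), where 2 rose and 12 fell with library weights, and 1 and 10 in the fit of 4 libraries. TP63, the master regulator of basal epithelium, had 1.46 and 3.32 CPM in C2-Mes, against 163 and 181 CPM in C2-Epi (log2 -6.10). TFAP2A, an AP-2 factor, had 93.7 and 56.6 CPM in C2-Mes, against 163 and 181 CPM in C2-Epi (log2 -1.20), and KLF5 had 53.6 and 25.7 CPM in C2-Mes, against 68.8 and 88.8 CPM in C2-Epi (log2 -1.0). Both members that rose are named: KLF4, a zinc finger factor of epithelial differentiation, had 136 and 97.5 CPM in C2-Mes, against 43.7 and 48.2 CPM in C2-Epi (log2 1.34), and TRPS1, a GATA-type repressor of the mammary epithelium, had 285 and 144 CPM in C2-Mes, against 106 and 114 CPM in C2-Epi (log2 0.96). The calls had an adjusted p no higher than 0.0317 (KLF5). TFAP2A was not called in the fit of 4 libraries (adjusted p = 0.0529). The call of KLF5 was lost with library weights (adjusted p = 0.0918) and in the fit of 4 libraries (0.160) and on leaving out C2-Mes replicate 2 (0.211) or C2-Epi replicate 2 (0.152). The call of TRPS1 was lost in the fit of 4 libraries (adjusted p = 0.137) and on leaving out C2-Mes replicate 1 (0.411) or C2-Epi replicate 1 (0.146) or C2-Epi replicate 2 (0.0972).

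**Figure D2:**
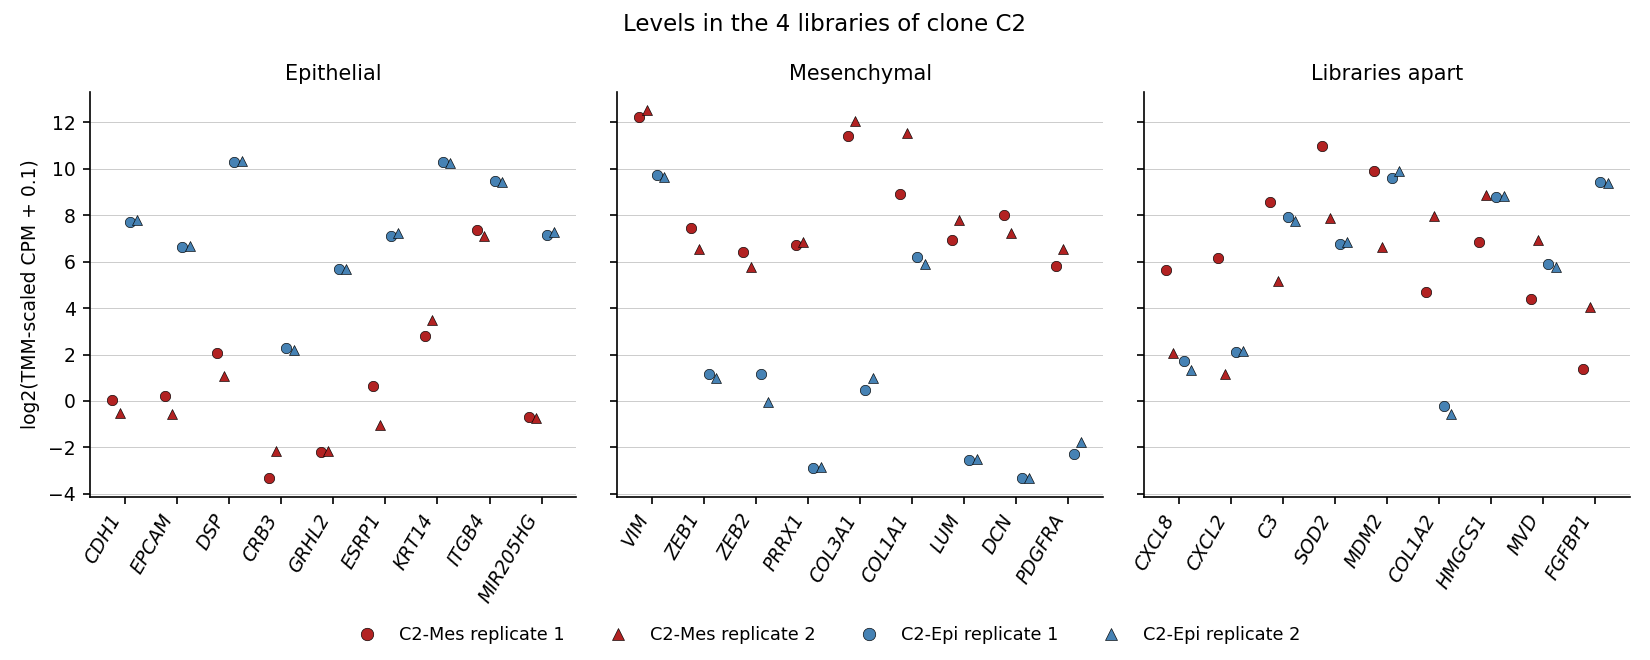
Levels of epithelial genes, mesenchymal genes and genes on which the C2-Mes libraries differ, as log2(CPM + 0.1) in each of the 4 libraries, with C2-Mes in red left of C2-Epi in blue, circles for replicate 1 and triangles for replicate 2. In the left and middle panels the groups do not overlap, while in the right panel the 2 C2-Mes libraries lie far apart, for example 71.1 and 2.14 CPM for CXCL2.

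The host transcripts of microRNAs that restrain ZEB factors fell. MIR205HG, the host of miR-205, had 0.526 and 0.511 CPM in C2-Mes, against 144 and 155 CPM in C2-Epi (log2 -8.16 ± 0.18). MIR200CHG, the host of miR-200c and miR-141, was near the limit of detection, with 0 counts in both C2-Mes libraries and 0.541 and 0.422 CPM in C2-Epi, at least 3.56-fold lower in C2-Mes against a floor of 3 counts in each library. MIR503HG, beside the genes of miR-503 and miR-424, had 1.28 and 1.31 CPM in C2-Mes, against 50.4 and 54.8 CPM in C2-Epi (log2 -5.33), and MIR23AHG had 15.6 and 13.8 CPM in C2-Mes, against 34.9 and 34.1 CPM in C2-Epi. Hosts that rose included MIR22HG with 22.8 and 20.8 CPM in C2-Mes, against 7.62 and 7.26 CPM in C2-Epi (log2 1.55) and MIR100HG, the host of miR-100, let-7a-2 and miR-125b-1, with 96.4 and 82.4 CPM in C2-Mes, against 42.5 and 51.7 CPM in C2-Epi. Among 17 members tested of 19 listed, 7 rose, 4 fell and 6 did not pass (median log2 0.63), where 7 rose and 4 fell with library weights, and 4 and 4 in the fit of 4 libraries. A host transcript is not the mature microRNA, which these libraries did not measure. Adjusted p of the genes called was at most 0.00623 (MIR100HG). The call of MIR100HG was lost on leaving out C2-Mes replicate 1 (adjusted p = 0.0595) or C2-Epi replicate 1 (0.112).

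The mature sequences are shown because their seeds decide what they can pair with. Bases 2 to 8, the seed, are in capitals (RefSeq, GRCh38.p14).
hsa-miR-205-5p: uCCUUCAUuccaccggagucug
hsa-miR-200c-3p: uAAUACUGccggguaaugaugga
hsa-miR-200b-3p: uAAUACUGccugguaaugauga
hsa-miR-429: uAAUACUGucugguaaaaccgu
hsa-miR-141-3p: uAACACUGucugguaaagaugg
hsa-miR-200a-3p: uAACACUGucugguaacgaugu
hsa-miR-503-5p: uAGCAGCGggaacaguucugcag
hsa-miR-424-5p: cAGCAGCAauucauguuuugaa
hsa-miR-22-3p: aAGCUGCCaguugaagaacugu
The miR-200 family falls into seed groups AAUACUG (miR-200b, miR-200c and miR-429) and AACACUG (miR-141 and miR-200a), so the MIR200CHG cluster on chromosome 12 carries a member of each. miR-503 and miR-424, both on chromosome X, share the first 6 bases of the seed, and miR-205 has a seed of its own, CCUUCAU.

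The factors that drive the transition were called, as a list, at shares near those of all tested genes (21% rose, 18.6% fell). Among 21 members tested of 22 listed, 5 rose, 4 fell and 12 did not pass (median log2 0.12), where 5 rose and 3 fell with library weights, and 5 and 2 in the fit of 4 libraries. ZEB1 had 176 and 92.1 CPM in C2-Mes, against 2.17 and 1.88 CPM in C2-Epi (log2 6.04) and ZEB2 had 86.0 and 54.2 CPM in C2-Mes, against 2.17 and 0.883 CPM in C2-Epi (log2 5.51), both zinc finger repressors of CDH1. FOXC2, a forkhead factor of mesenchyme, had 81.5 and 73.0 CPM in C2-Mes, against 1.08 and 1.11 CPM in C2-Epi (log2 6.13), and TWIST1, a bHLH factor of mesoderm, had 10.0 and 8.08 CPM in C2-Mes, against 2.56 and 3.26 CPM in C2-Epi (log2 1.63). SNAI2, a repressor that basal epithelial cells also express, was lower, with 94.1 and 41.0 CPM in C2-Mes, against 170.4 and 177 CPM in C2-Epi (log2 -1.37), as were SOX9, with 27 and 29.8 CPM in C2-Mes, against 59.0 and 63.4 CPM in C2-Epi, and SOX4, with 22.9 and 12.8 CPM in C2-Mes, against 25.7 and 28.8 CPM in C2-Epi. RUNX1, a RUNX factor of mammary epithelium, had 73.2 and 37.8 CPM in C2-Mes, against 55.3 and 60.7 CPM in C2-Epi and did not pass. Calls here had an adjusted p of at most 0.0426 (SOX4). SNAI2 was not called in the fit of 4 libraries (adjusted p = 0.0923). The call of SOX4 was lost with library weights (adjusted p = 0.109) and in the fit of 4 libraries (0.264) and on leaving out C2-Mes replicate 2 (0.233) or C2-Epi replicate 1 (0.0663) or C2-Epi replicate 2 (0.159).

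Among the genes with the highest fitted changes, several had no count in either C2-Epi library, and their fold is a lower bound against a floor of 3 counts in each library. DCN, the matrix proteoglycan decorin, had 257 and 152 CPM in C2-Mes, against 0 CPM in both C2-Epi libraries. It was at least 1829-fold higher on the mean and 1356-fold in the lower library. ADH1B, an alcohol dehydrogenase, had 78.2 and 2.94 CPM in C2-Mes, against 0 CPM in both C2-Epi libraries, at least 363-fold higher on the mean of the unlike C2-Mes libraries and 26.3-fold in the lower one. LRRTM3, a synaptic adhesion protein, had 15.5 and 44.1 CPM in C2-Mes, against 0 CPM in both C2-Epi libraries, at least 266-fold higher on the mean and 138-fold in the lower library, and ABCA8, a lipid transporter, had 18.6 and 19 CPM in C2-Mes, against 0 CPM in both C2-Epi libraries, at least 168-fold higher. AGTR1, the angiotensin II receptor, had 8.99 and 22.5 CPM in C2-Mes, against 0 CPM in both C2-Epi libraries, at least 141-fold higher on the mean and 80.5-fold in the lower library, and HEPH, a copper-dependent ferroxidase, had 13.2 and 11.3 CPM in C2-Mes, against 0 CPM in both C2-Epi libraries, at least 109.6-fold higher. NETO1 had 17.4 and 13.7 CPM in C2-Mes, against 0 CPM in both C2-Epi libraries, and ABCA9, a neighbour of ABCA8 on chromosome 17, had 22.2 and 6.90 CPM in C2-Mes, against 0 CPM in both C2-Epi libraries, at least 139-fold and 130.4-fold higher, or 61.7-fold for ABCA9 in its lower library. LAMA4, the laminin chain of mesenchyme and vessels, had 167 and 88.1 CPM in C2-Mes, against 0.0361 and 0 CPM in C2-Epi, COL14A1, a fibril-associated collagen, had 168 and 58 CPM in C2-Mes, against 0 and 0.0384 CPM in C2-Epi, and PTX3, a secreted pentraxin, had 451 and 161 CPM in C2-Mes, against 0.144 and 0.0768 CPM in C2-Epi. Among the genes called, adjusted p reached 0.00194 (ADH1B). ADH1B was not called in the fit of 4 libraries (adjusted p = 0.0833).

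Among the deepest falls, RNF43, a ubiquitin ligase that removes Wnt receptors, had 0 CPM in both C2-Mes libraries, against 16.9 and 16.8 CPM in C2-Epi, at least 124-fold lower. UCA1, a long non-coding RNA of urothelial cancer, had 0 CPM in both C2-Mes libraries, against 10.6 and 10.2 CPM in C2-Epi, at least 76.9-fold lower. RAPGEF5, a Rap exchange factor, had 0 CPM in both C2-Mes libraries, against 9.71 and 8.76 CPM in C2-Epi, ST6GALNAC5, a sialyltransferase, had 0 CPM in both C2-Mes libraries, against 8.41 and 9.33 CPM in C2-Epi and ZNF704 had 0 CPM in both C2-Mes libraries, against 7.26 and 7.45 CPM in C2-Epi. SYK, a tyrosine kinase known from leukocytes and mammary epithelium, had 0.117 and 0.128 CPM in C2-Mes, against 90.8 and 82.9 CPM in C2-Epi (log2 -9.40), and PRKCZ, the atypical protein kinase C of apical polarity complexes, had 0 and 0.0639 CPM in C2-Mes, against 30.1 and 28.7 CPM in C2-Epi (log2 -9.32). CNTNAP2, a neurexin-like adhesion protein, had 0.234 and 0.128 CPM in C2-Mes, against 147 and 161 CPM in C2-Epi, and ARHGAP8 had 0 CPM in both C2-Mes libraries, against 5.13 and 6.34 CPM in C2-Epi. CDHR1 had 0 CPM in both C2-Mes libraries, against 6.86 and 7.34 CPM in C2-Epi, RNF39 had 0 and 0.0319 CPM in C2-Mes, against 32.8 and 32.0 CPM in C2-Epi and SFTA1P, a pseudogene, had 0 and 0.0319 CPM in C2-Mes, against 22.3 and 22.0 CPM in C2-Epi. In each of these 12 genes both C2-Mes libraries were at or near 0. No named call had an adjusted p above 6.84e-06 (CDHR1).

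Other intermediate filaments and surface markers changed in both directions. Among 10 members tested of 13 listed, 5 rose, 3 fell and 2 did not pass (median log2 0.69), where 5 rose and 3 fell with library weights, and 4 and 1 in the fit of 4 libraries. NES, nestin, had 7.30 and 35.9 CPM in C2-Mes, against 0.180 and 0.192 CPM in C2-Epi (log2 6.84), and SYNM, synemin, had 15.1 and 21.9 CPM in C2-Mes, against 5.09 and 5.26 CPM in C2-Epi (log2 1.84). The lamin LMNA had 374 and 563 CPM in C2-Mes, against 286 and 272 CPM in C2-Epi (log2 0.75), while LMNB1, a lamin of dividing cells, had 40.2 and 53.8 CPM in C2-Mes, against 83.8 and 78.6 CPM in C2-Epi (log2 -0.79). Of the surface markers, 6 of 15 tested members rose and 4 fell (median log2 0.67; 6 and 4 with library weights, 5 and 4 from 4 libraries). NT5E, or CD73, had 1129 and 1150.0 CPM in C2-Mes, against 297 and 311 CPM in C2-Epi (log2 1.91), THY1, or CD90, had 67.7 and 187 CPM in C2-Mes, against 17.6 and 14 CPM in C2-Epi (log2 3.02) and CD59, a complement inhibitor, had 553 and 843 CPM in C2-Mes, against 245 and 227 CPM in C2-Epi (log2 1.56). CD44, the hyaluronan receptor that is often paired with CD24 to sort mammary cells, had 992 and 853 CPM in C2-Mes, against 763 and 802 CPM in C2-Epi and did not pass. Every call named had an adjusted p of 0.00508 (LMNA) or less. LMNB1 was not called in the fit of 4 libraries (adjusted p = 0.0678). The call of LMNA was lost in the fit of 4 libraries (adjusted p = 0.102) and on leaving out C2-Mes replicate 2 (0.0703) or C2-Epi replicate 2 (0.0605).

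Genes of the fibrillar collagen matrix rose in C2-Mes. Among 10 members tested of 11 listed, 7 rose, 1 fell and 2 did not pass (median log2 4.62), where 7 rose and 1 fell with library weights, and 7 and 1 in the fit of 4 libraries. COL3A1, collagen III of soft connective tissue, had 2694 and 4249.6 CPM in C2-Mes, against 1.30 and 1.88 CPM in C2-Epi (log2 11.09), and COL5A2, a regulator of fibril width, had 324 and 555 CPM in C2-Mes, against 1.84 and 2.19 CPM in C2-Epi (log2 7.77). COL5A3 had 64.1 and 92.7 CPM in C2-Mes, against 8.23 and 7.72 CPM in C2-Epi (log2 3.30). The collagen I chains rose in both libraries but unequally: COL1A1 had 484 and 2962 CPM in C2-Mes, against 74.1 and 59.8 CPM in C2-Epi, and COL1A2 had 25.6 and 253 CPM in C2-Mes, against 0.758 and 0.576 CPM in C2-Epi, so that replicate 2 was the higher library by log2 2.61 and 3.30. COL2A1, the cartilage collagen, had 0 counts in both C2-Mes libraries and 1.66 and 1.34 CPM in C2-Epi. COL27A1 had 34.5 and 25.7 CPM in C2-Mes, against 38.2 and 38.7 CPM in C2-Epi and did not pass. With COL1A1 the highest adjusted p of the named calls was 2.5e-05.

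Of the other collagens, the collagen VI chains, which form beaded filaments around cells, rose. Among 24 members tested of 27 listed, 15 rose, 4 fell and 5 did not pass (median log2 1.35), where 14 rose and 2 fell with library weights, and 12 and 2 in the fit of 4 libraries. COL6A1 had 2916 and 2369.6 CPM in C2-Mes, against 14.1 and 12.2 CPM in C2-Epi (log2 7.65), COL6A2 had 2725 and 2319.6 CPM in C2-Mes, against 2.49 and 2.19 CPM in C2-Epi (log2 10.07) and COL6A3 had 1195 and 528 CPM in C2-Mes, against 10.00 and 9.99 CPM in C2-Epi (log2 6.43). The basement membrane chains COL4A1 and COL4A2 rose less: COL4A1 had 964 and 736 CPM in C2-Mes, against 347 and 334 CPM in C2-Epi (log2 1.32), and COL4A2 had 854 and 690.0 CPM in C2-Mes, against 398 and 372 CPM in C2-Epi (log2 1.00). COL12A1, a fibril-associated collagen, fell, with 14.5 and 37.0 CPM in C2-Mes, against 159.7 and 156 CPM in C2-Epi (log2 -2.60), and COL7A1, the anchoring fibril of skin, had 325 and 329 CPM in C2-Mes, against 459.8 and 495 CPM in C2-Epi (log2 -0.55). The calls had an adjusted p no higher than 0.0310 (COL7A1). The call of COL7A1 was lost with library weights (adjusted p = 0.144) and in the fit of 4 libraries (0.0699) and on leaving out C2-Epi replicate 2 (0.0948).

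Most enzymes that fold and trim collagen rose too. Among 18 members tested of 20 listed, 13 rose, 2 fell and 3 did not pass (median log2 1.64), where 13 rose and 0 fell with library weights, and 12 and 0 in the fit of 4 libraries. The lysyl hydroxylase PLOD1 had 555 and 637 CPM in C2-Mes, against 176 and 154 CPM in C2-Epi (log2 1.85), and the prolyl hydroxylase subunits P4HA1 and P4HA2 rose by log2 1.70 and 1.85. CRTAP, of the prolyl 3-hydroxylation complex, had 436 and 328 CPM in C2-Mes, against 196 and 203 CPM in C2-Epi. PCOLCE, which enhances procollagen cleavage, rose, with 123 and 223 CPM in C2-Mes, against 1.70 and 1.88 CPM in C2-Epi (log2 6.59). SERPINH1, the collagen chaperone HSP47, had 219 and 549.6 CPM in C2-Mes, against 243 and 218 CPM in C2-Epi and did not pass, with replicate 1 within the C2-Epi range and replicate 2 above it. Adjusted p of the genes called was at most 2.25e-04 (CRTAP).

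Small proteoglycans were among the most changed matrix genes. Among 15 members tested of 21 listed, 9 rose, 2 fell and 4 did not pass (median log2 2.08), where 9 rose and 2 fell with library weights, and 8 and 1 in the fit of 4 libraries. BGN, biglycan, had 347 and 492 CPM in C2-Mes, against 1.48 and 0.999 CPM in C2-Epi (log2 8.39), LUM, lumican, had 123 and 220.2 CPM in C2-Mes, against 0.0722 and 0.0768 CPM in C2-Epi (log2 11.08), and VCAN, the large proteoglycan versican, had 276 and 138 CPM in C2-Mes, against 3.36 and 4.34 CPM in C2-Epi (log2 5.75). The cell-surface syndecans split: SDC3 had 63.1 and 111 CPM in C2-Mes, against 47.1 and 42.2 CPM in C2-Epi (log2 0.96), while SDC1, the syndecan of epithelia, had 157 and 181 CPM in C2-Mes, against 486 and 450.3 CPM in C2-Epi (log2 -1.47) and SDC4 had 104 and 112 CPM in C2-Mes, against 169 and 168 CPM in C2-Epi (log2 -0.64). Calls here had an adjusted p of at most 0.00233 (SDC3). SDC3 and SDC4 were not called in the fit of 4 libraries (adjusted p = 0.104 and 0.0561).

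Glycoproteins of the matrix mostly rose, with THBS1 a large exception. Among 29 members tested of 30 listed, 18 rose, 5 fell and 6 did not pass (median log2 1.84), where 17 rose and 4 fell with library weights, and 14 and 3 in the fit of 4 libraries. FN1, fibronectin, rose, with 37534 and 34787 CPM in C2-Mes, against 12336 and 12515 CPM in C2-Epi (log2 1.54). FBN1, the fibrillin of microfibrils, had 267 and 356 CPM in C2-Mes, against 3.21 and 2.5 CPM in C2-Epi (log2 6.77), and LTBP1, which tethers latent TGF-beta to them, had 862 and 1286 CPM in C2-Mes, against 14.1 and 14.8 CPM in C2-Epi (log2 6.22). SPARC, a collagen-binding protein, had 526 and 1539 CPM in C2-Mes, against 318 and 310.2 CPM in C2-Epi (log2 1.72). THBS1, thrombospondin 1, an activator of latent TGF-beta, had 112 and 208 CPM in C2-Mes, against 4987 and 5050.5 CPM in C2-Epi (log2 -4.97 ± 0.26). TGFBI, a TGF-beta-induced adhesion protein, had 22.2 and 16.6 CPM in C2-Mes, against 123 and 118 CPM in C2-Epi (log2 -2.64), and EFEMP1, a fibulin, had 3.85 and 2.04 CPM in C2-Mes, against 89.2 and 95.2 CPM in C2-Epi (log2 -5.02). CCN2 had 106 and 84.3 CPM in C2-Mes, against 159 and 171 CPM in C2-Epi and CCN1 had 432 and 517 CPM in C2-Mes, against 626 and 601 CPM in C2-Epi, both matricellular targets of YAP. Among the genes called, adjusted p reached 0.0460 (CCN1). SPARC and CCN2 were not called in the fit of 4 libraries (adjusted p = 0.0893 and 0.0537). The call of CCN1 was lost with library weights (adjusted p = 0.160) and in the fit of 4 libraries (0.201) and on leaving out C2-Mes replicate 1 (0.0530) or C2-Epi replicate 1 (0.0747) or C2-Epi replicate 2 (0.0527).

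Extracellular proteases and their inhibitors mostly rose, apart from those of epithelia. Among 24 members tested of 27 listed, 18 rose, 3 fell and 3 did not pass (median log2 1.72), where 18 rose and 3 fell with library weights, and 13 and 2 in the fit of 4 libraries. SERPINE2, an inhibitor of thrombin and urokinase, rose, with 1969.9 and 1522 CPM in C2-Mes, against 183 and 177 CPM in C2-Epi (log2 3.28). PLAU, urokinase, fell, with 113 and 88.6 CPM in C2-Mes, against 240.0 and 226 CPM in C2-Epi (log2 -1.21). The membrane collagenase MMP14 had 725 and 653 CPM in C2-Mes, against 268 and 272 CPM in C2-Epi (log2 1.35), and the metalloproteinase inhibitors TIMP2 and TIMP3 rose by log2 3.69 and 2.25. Among epithelial serine proteases and their inhibitors, 0 of 21 tested of 22 members rose and 16 fell (median log2 -4.21; 0 and 14 with library weights, 0 and 14 from 4 libraries). ST14, matriptase, had 0.234 and 0.766 CPM in C2-Mes, against 34.1 and 33.8 CPM in C2-Epi (log2 -5.91), its inhibitors SPINT1 and SPINT2 fell (log2 -4.92 and -7.03), and SERPINB5, maspin, had 329 and 235 CPM in C2-Mes, against 814 and 806 CPM in C2-Epi. No named call had an adjusted p above 1.92e-05 (PLAU).

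Integrin chains changed in both directions. Among 18 members tested of 20 listed, 6 rose, 6 fell and 6 did not pass (median log2 -0.30), where 6 rose and 5 fell with library weights, and 5 and 6 in the fit of 4 libraries. ITGA5, the fibronectin receptor chain, had 1128 and 1255 CPM in C2-Mes, against 241 and 226 CPM in C2-Epi (log2 2.35). ITGA10, a collagen receptor chain, had 809 and 869 CPM in C2-Mes, against 97.2 and 98.1 CPM in C2-Epi (log2 3.10), and ITGA7, a laminin receptor of muscle, had 58.6 and 164 CPM in C2-Mes, against 0.902 and 0.730 CPM in C2-Epi (log2 7.08). ITGB6, the epithelial subunit that activates TGF-beta, had 1.28 and 1.66 CPM in C2-Mes, against 98.5 and 105 CPM in C2-Epi (log2 -6.08), and ITGA2, the collagen receptor of epithelia, had 33.6 and 15.9 CPM in C2-Mes, against 99.5 and 115 CPM in C2-Epi (log2 -2.12). ITGB1, the shared beta chain, had 1265 and 1505 CPM in C2-Mes, against 1015 and 1118 CPM in C2-Epi and did not pass. Other cadherins divided: 8 of 17 tested of 20 members rose and 4 fell (median log2 0.85; 8 and 4 with library weights, 3 and 4 from 4 libraries). CDH2, N-cadherin, had 16.8 and 41.6 CPM in C2-Mes, against 10.3 and 7.45 CPM in C2-Epi (log2 1.73), and PCDH18 had 77.4 and 51.5 CPM in C2-Mes, against 10.1 and 9.72 CPM in C2-Epi, while FAT2, an atypical cadherin of keratinocytes, had 0.701 and 0.415 CPM in C2-Mes, against 270.4 and 272 CPM in C2-Epi (log2 -9.0). CDH11, known as a cadherin of mesenchyme, was lower, with 9.11 and 4.95 CPM in C2-Mes, against 70.4 and 66.5 CPM in C2-Epi (log2 -3.31). Every call named had an adjusted p of 0.00138 (CDH2) or less. CDH2 was not called in the fit of 4 libraries (adjusted p = 0.0769).

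Genes of TGF-beta and BMP signalling were called at shares near those of all tested genes (21% rose, 18.6% fell). Among 34 members tested, 9 rose, 8 fell and 17 did not pass (median log2 0.0652), where 8 rose and 8 fell with library weights, and 6 and 6 in the fit of 4 libraries. Of the ligands, TGFB1 had 111 and 181 CPM in C2-Mes, against 75.8 and 77.5 CPM in C2-Epi (log2 0.93), BMP2 had 14.4 and 11.9 CPM in C2-Mes, against 3.57 and 5.07 CPM in C2-Epi (log2 1.60) and INHBA, the activin A subunit, had 8.17 and 2.52 CPM in C2-Mes, against 189.9 and 215 CPM in C2-Epi (log2 -5.30). Of the antagonists, GREM1, gremlin, had 106 and 217 CPM in C2-Mes, against 0.614 and 0.614 CPM in C2-Epi (log2 8.03), and FST, follistatin, had 0.876 and 0.639 CPM in C2-Mes, against 16.2 and 17.2 CPM in C2-Epi (log2 -4.50). Of the receptors, TGFBR3, betaglycan, had 87.2 and 45.0 CPM in C2-Mes, against 5.56 and 5.80 CPM in C2-Epi (log2 3.54), ACVR1 had 105 and 74.7 CPM in C2-Mes, against 29.6 and 31.0 CPM in C2-Epi (log2 1.57), and TGFBR2 had 253 and 287 CPM in C2-Mes, against 292 and 287 CPM in C2-Epi and did not pass. The target genes PMEPA1, ID3 and SMAD7 fell (log2 -2.74, -2.28 and -1.16), and PMEPA1 had 8.64 and 11.4 CPM in C2-Mes, against 69.1 and 66.3 CPM in C2-Epi. With TGFB1 the highest adjusted p of the named calls was 0.00136. TGFB1 and SMAD7 were not called in the fit of 4 libraries (adjusted p = 0.0860 and 0.0611).

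Wnt genes changed in both directions. Among 35 members tested of 43 listed, 11 rose, 13 fell and 11 did not pass (median log2 0), where 10 rose and 10 fell with library weights, and 7 and 13 in the fit of 4 libraries. Of the ligands, WNT5B, a non-canonical Wnt, had 25.1 and 37.5 CPM in C2-Mes, against 0.180 and 0.154 CPM in C2-Epi (log2 7.51). ROR1, a receptor for non-canonical Wnts, had 108 and 91.7 CPM in C2-Mes, against 5.41 and 6.45 CPM in C2-Epi (log2 4.07), and the Frizzled receptors FZD8 and FZD1 rose by log2 2.71 and 2.98. FZD3 had 1.05 and 0.639 CPM in C2-Mes, against 18.7 and 24.9 CPM in C2-Epi (log2 -4.75). The canonical co-receptor LRP5 had 36.3 and 48.4 CPM in C2-Mes, against 129.9 and 119 CPM in C2-Epi (log2 -1.55), and LGR4, the R-spondin receptor, had 49.9 and 31.9 CPM in C2-Mes, against 85.8 and 101 CPM in C2-Epi (log2 -1.19). Of the secreted antagonists, SFRP1 had 0.175 and 0.128 CPM in C2-Mes, against 19.7 and 21.5 CPM in C2-Epi (log2 -7.10), DKK1 had 14.9 and 13 CPM in C2-Mes, against 51.0 and 56.9 CPM in C2-Epi (log2 -1.95), and DKK3 had 182 and 298 CPM in C2-Mes, against 124 and 118 CPM in C2-Epi (log2 0.99). The calls had an adjusted p no higher than 8.71e-04 (DKK3). DKK3 was not called in the fit of 4 libraries (adjusted p = 0.0748).

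Receptors and ligands of the FGF and PDGF families changed in nearly every member tested. Among 14 members tested of 17 listed, 6 rose, 7 fell and 1 did not pass (median log2 -0.61), where 6 rose and 7 fell with library weights, and 5 and 7 in the fit of 4 libraries. FGFR1 had 139 and 251 CPM in C2-Mes, against 10.8 and 8.56 CPM in C2-Epi (log2 4.33), while FGFR2 and FGFR3, the receptors of epithelia, fell: FGFR2 had 0 and 0.128 CPM in C2-Mes, against 14.9 and 15.0 CPM in C2-Epi (log2 -7.43), and FGFR3 had 1.17 and 1.76 CPM in C2-Mes, against 88.9 and 83.8 CPM in C2-Epi (log2 -5.83). FGFBP1, which releases FGFs from matrix, had 2.51 and 16.3 CPM in C2-Mes, against 699.7 and 669 CPM in C2-Epi (log2 -6.14). PDGFRA had 56.5 and 92.8 CPM in C2-Mes, against 0.108 and 0.192 CPM in C2-Epi (log2 8.92) and PDGFRB had 57.6 and 107 CPM in C2-Mes, against 6.39 and 5.80 CPM in C2-Epi (log2 3.75), the receptors that mark fibroblasts, whereas the ligand PDGFA had 1.52 and 1.44 CPM in C2-Mes, against 21.8 and 21.9 CPM in C2-Epi (log2 -3.89). FGF2 had 136 and 37.2 CPM in C2-Mes, against 15.1 and 16.8 CPM in C2-Epi, lower in replicate 2 than in replicate 1. In the EGF receptor family, 2 of 12 tested of 13 members rose and 7 fell (median log2 -1.88; 2 and 7 with library weights, 2 and 5 from 4 libraries). EGFR had 238 and 147 CPM in C2-Mes, against 669 and 705 CPM in C2-Epi (log2 -1.84), and its ligands TGFA and AREG fell: TGFA had 1.46 and 0.670 CPM in C2-Mes, against 83.4 and 88.8 CPM in C2-Epi (log2 -6.44), and AREG had 325 and 131 CPM in C2-Mes, against 837 and 887 CPM in C2-Epi (log2 -1.92). NRG1, the ligand of ERBB3, had 6.19 and 5.71 CPM in C2-Mes, against 63.9 and 62.4 CPM in C2-Epi (log2 -3.41). Adjusted p of the genes called was at most 0.00113 (FGF2). FGF2 and AREG were not called in the fit of 4 libraries (adjusted p = 0.0639 and 0.05).

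Downstream of RAS, several feedback genes rose and some immediate-early genes fell. The share of the list that fell was near the 18.6% of all tested genes. Among 22 members tested, 10 rose, 4 fell and 8 did not pass (median log2 0.30), where 10 rose and 4 fell with library weights, and 5 and 1 in the fit of 4 libraries. The phosphatase DUSP4 had 439 and 294 CPM in C2-Mes, against 116 and 107 CPM in C2-Epi (log2 1.71), and the feedback inhibitors SPRY4 and SPRED2 rose by log2 1.21 and 1.06. HRAS, in which counts from the introduced gene cannot be told from those of the cell's own, had 288 and 410.3 CPM in C2-Mes, against 115 and 108 CPM in C2-Epi (log2 1.64), and TERT, also an introduced gene, had 3.80 and 8.40 CPM in C2-Mes, against 1.26 and 0.768 CPM in C2-Epi (log2 2.61). EGR1 had 693 and 419 CPM in C2-Mes, against 822 and 857 CPM in C2-Epi (log2 -0.59), FOS had 339 and 194 CPM in C2-Mes, against 448 and 500.4 CPM in C2-Epi (log2 -0.83) and FOSB had 169 and 64.5 CPM in C2-Mes, against 315 and 346 CPM in C2-Epi (log2 -1.50). DUSP6, another ERK phosphatase, had 316 and 304 CPM in C2-Mes, against 376 and 427 CPM in C2-Epi and did not pass. Among genes of the YAP pathway, 2 of 17 tested members rose and 9 fell (median log2 -0.37; 2 and 7 with library weights, 2 and 3 from 4 libraries). WWTR1, or TAZ, had 417 and 411 CPM in C2-Mes, against 123 and 132 CPM in C2-Epi (log2 1.70), YAP1 had 154 and 80.9 CPM in C2-Mes, against 170.1 and 203 CPM in C2-Epi (log2 -0.67) and the LIM protein gene AJUBA had 33.2 and 24.6 CPM in C2-Mes, against 222 and 233 CPM in C2-Epi (log2 -2.98). Calls here had an adjusted p of at most 0.0461 (YAP1). SPRED2, FOS and FOSB were not called in the fit of 4 libraries (adjusted p = 0.0914, 0.136 and 0.0990). The call of EGR1 was lost in the fit of 4 libraries (adjusted p = 0.212) and on leaving out C2-Mes replicate 2 (0.0786) or C2-Epi replicate 2 (0.0785). The call of YAP1 was lost with library weights (adjusted p = 0.0583) and in the fit of 4 libraries (0.259) and on leaving out C2-Mes replicate 2 (0.205) or C2-Epi replicate 1 (0.0561) or C2-Epi replicate 2 (0.193).

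Notch genes changed in both directions. Among 18 members tested of 19 listed, 5 rose, 8 fell and 5 did not pass (median log2 -1.25), where 4 rose and 7 fell with library weights, and 3 and 5 in the fit of 4 libraries. NOTCH2 had 597 and 591 CPM in C2-Mes, against 205 and 204 CPM in C2-Epi (log2 1.54), and NOTCH3, a receptor of mural cells, had 441 and 209 CPM in C2-Mes, against 23.8 and 19 CPM in C2-Epi (log2 3.92). The ligands JAG2 and DLL1 fell: JAG2 had 1.28 and 1.40 CPM in C2-Mes, against 27.1 and 27.4 CPM in C2-Epi (log2 -4.33), and DLL1 had 0.117 and 0.0639 CPM in C2-Mes, against 4.4 and 4.22 CPM in C2-Epi (log2 -5.62). Of the targets, HEY1 had 62.9 and 16.2 CPM in C2-Mes, against 1.08 and 1.27 CPM in C2-Epi (log2 5.06), and HES1 had 23.5 and 5.94 CPM in C2-Mes, against 102 and 87.4 CPM in C2-Epi (log2 -2.71), both with replicate 1 above replicate 2. NOTCH1 had 104 and 29.4 CPM in C2-Mes, against 125 and 125 CPM in C2-Epi and did not pass. In Hedgehog signalling, 6 of 12 tested of 13 members rose and 3 fell (median log2 1.60; 5 and 3 with library weights, 4 and 3 from 4 libraries). GLI2, an effector, had 12.5 and 22.5 CPM in C2-Mes, against 0.325 and 0.461 CPM in C2-Epi (log2 5.47), and the ligand-binding proteins PTCH1 and HHIP, both targets of the pathway, rose by log2 2.63 and 7.69. SMO, the signal transducer, had 0 and 0.0958 CPM in C2-Mes, against 3.75 and 4.26 CPM in C2-Epi (log2 -5.92). SMO was near 0 in both C2-Mes libraries, where its targets were higher. Among the genes called, adjusted p reached 1.40e-04 (HES1). HES1 was not called in the fit of 4 libraries (adjusted p = 0.0563).

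Most axon guidance genes changed. Among 30 members tested of 32 listed, 16 rose, 10 fell and 4 did not pass (median log2 0.68), where 14 rose and 6 fell with library weights, and 10 and 5 in the fit of 4 libraries. SEMA5A, a transmembrane semaphorin, had 513 and 551 CPM in C2-Mes, against 4.84 and 5.76 CPM in C2-Epi (log2 6.65), and NRP1, a co-receptor of semaphorins and VEGF, had 789.9 and 641 CPM in C2-Mes, against 118 and 116 CPM in C2-Epi (log2 2.61). The netrin receptor UNC5B had 188 and 176 CPM in C2-Mes, against 7.4 and 5.72 CPM in C2-Epi (log2 4.79), and NTN4, a netrin of basement membranes, had 183 and 145 CPM in C2-Mes, against 14.3 and 15.3 CPM in C2-Epi (log2 3.47). SEMA3F had 21.8 and 7.69 CPM in C2-Mes, against 96.7 and 88.6 CPM in C2-Epi (log2 -2.67), and PLXNB1, a plexin receptor, had 28.4 and 28.0 CPM in C2-Mes, against 144 and 144 CPM in C2-Epi (log2 -2.35). Among contractile genes, 5 of 14 tested of 16 members rose and 4 fell (median log2 0.0062; 4 and 3 with library weights, 2 and 2 from 4 libraries). MYLK, myosin light chain kinase, had 96.8 and 75.3 CPM in C2-Mes, against 39.5 and 36.4 CPM in C2-Epi (log2 1.18), and ACTA2, smooth muscle actin, had 100.3 and 60.1 CPM in C2-Mes, against 58.7 and 53.4 CPM in C2-Epi and did not pass. No named call had an adjusted p above 5.03e-05 (SEMA3F).

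**Figure D3:**
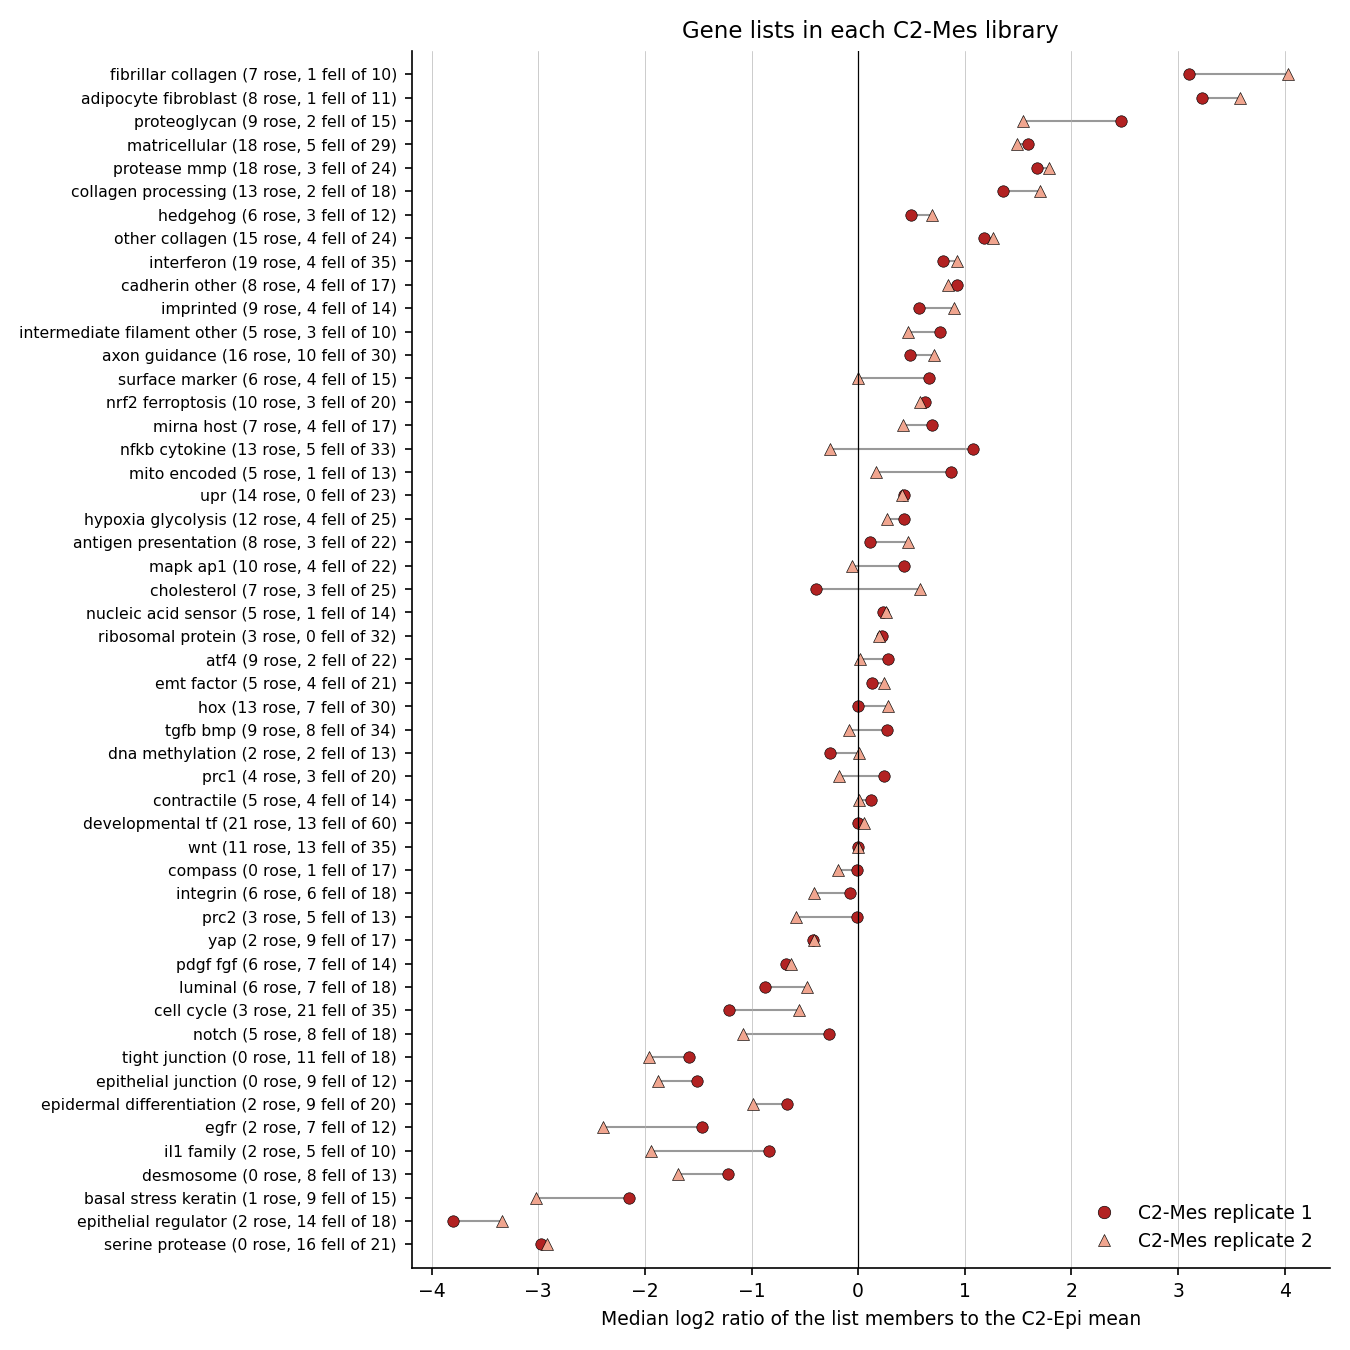
Median log2 ratio to the C2-Epi mean over the tested members of each list with at least 10 such members, for C2-Mes replicate 1 (circle) and replicate 2 (triangle), with the counts that rose and fell in the fit of all 16 libraries. The lists are ordered by their median fitted log2 change, from fibrillar collagens at the top to serine proteases at the bottom, and the widest gaps between the libraries are those of the NF-kB, interleukin-1 and cholesterol lists.

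Interferon-response genes rose in part. Among 35 members tested, 19 rose, 4 fell and 12 did not pass (median log2 1.04), where 15 rose and 3 fell with library weights, and 13 and 3 in the fit of 4 libraries. IFI44L had 66.5 and 46.2 CPM in C2-Mes, against 0.902 and 0.576 CPM in C2-Epi (log2 6.23), and the membrane restriction factors IFITM2 and IFITM3 rose by log2 3.46 and 1.60. TRIM22, an antiviral ubiquitin ligase, had 48.5 and 16.3 CPM in C2-Mes, against 9.31 and 10.6 CPM in C2-Epi (log2 1.69). OAS3, which makes oligoadenylate on double-stranded RNA, was lower, with 35.6 and 45.2 CPM in C2-Mes, against 116 and 110.2 CPM in C2-Epi (log2 -1.48). Of the nucleic acid sensors, 5 of 14 tested of 17 members rose and 1 fell (median log2 0.22; 3 and 1 with library weights, 0 and 1 from 4 libraries). CGAS, the DNA sensor, had 7.59 and 4.12 CPM in C2-Mes, against 16.9 and 16.5 CPM in C2-Epi (log2 -1.54), and MAVS, the adaptor of RNA sensing, had 224 and 196 CPM in C2-Mes, against 128 and 139.7 CPM in C2-Epi (log2 0.65). Of the antigen presentation genes, 8 of 22 tested of 24 members rose and 3 fell (median log2 0.35; 4 and 3 with library weights, 1 and 2 from 4 libraries). B2M, the light chain of class I, had 693 and 593 CPM in C2-Mes, against 341 and 359.9 CPM in C2-Epi (log2 0.88), HLA-F had 0.701 and 1.09 CPM in C2-Mes, against 8.56 and 7.99 CPM in C2-Epi (log2 -3.15), and HLA-DPB1, a class II chain, had 0 counts in both C2-Mes libraries and 4.01 and 3.42 CPM in C2-Epi, at least 27.4-fold lower. Reads of HLA genes can be split between alleles and paralogs by the counting. Every call named had an adjusted p of 0.00150 (TRIM22) or less. TRIM22 and MAVS were not called in the fit of 4 libraries (adjusted p = 0.103 and 0.0621).

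NF-kB and cytokine genes were the list on which the C2-Mes libraries differed most. Among 33 members tested of 36 listed, 13 rose, 5 fell and 15 did not pass (median log2 0.63), where 12 rose and 3 fell with library weights, and 3 and 1 in the fit of 4 libraries. The median log2 ratio of the list to C2-Epi was 1.07 in replicate 1 and -0.27 in replicate 2. Of the 33 members, at any level, 23 were over 2-fold higher in replicate 1 than in replicate 2 and 0 the reverse. Of all 18285 tested genes, at any level, 1716 were over 2-fold higher in replicate 1 and 1893 in replicate 2. Among genes with at least 5 CPM in C2-Mes the shares were 7.33% and 5.71%. Their summed level was 3525 and 684 CPM in C2-Mes, against 896 and 856 CPM in C2-Epi. SOD2, the mitochondrial superoxide dismutase, had 2001 and 233 CPM in C2-Mes, against 109 and 114 CPM in C2-Epi, CXCL8, a neutrophil chemokine, had 49.8 and 4.15 CPM in C2-Mes, against 3.21 and 2.42 CPM in C2-Epi, and C3, complement component 3, had 385 and 35.9 CPM in C2-Mes, against 241 and 218 CPM in C2-Epi. NFKBIA, the inhibitor that NF-kB induces, had 109 and 41.9 CPM in C2-Mes, against 91.2 and 84.1 CPM in C2-Epi, so that replicate 1 lay above and replicate 2 below both C2-Epi libraries. IL6, chosen after its values were seen, had 7.36 and 0.319 CPM in C2-Mes, against 1.37 and 0.999 CPM in C2-Epi and likewise lay on either side. NFKB1 fell in both libraries, with 37.1 and 28.6 CPM in C2-Mes, against 83.3 and 81.5 CPM in C2-Epi (log2 -1.33), and CSF1 rose in both, with 44.2 and 36.0 CPM in C2-Mes, against 20.0 and 15.9 CPM in C2-Epi (log2 1.15). In the IL-1 family, 2 of 10 tested of 13 members rose and 5 fell (median log2 -1.96; 1 and 5 with library weights, 1 and 3 from 4 libraries). IL1R1, the receptor, had 72.9 and 66.9 CPM in C2-Mes, against 10.6 and 10.8 CPM in C2-Epi (log2 2.7), IL1RAP, its co-receptor, had 25.5 and 20.6 CPM in C2-Mes, against 120.1 and 138 CPM in C2-Epi (log2 -2.49) and IL18 had 4.38 and 9.26 CPM in C2-Mes, against 32.1 and 31.8 CPM in C2-Epi (log2 -2.20). With CXCL8 the highest adjusted p of the named calls was 0.00342. SOD2 was not called in the fit of 4 libraries (adjusted p = 0.0920). The call of CXCL8 was lost in the fit of 4 libraries (adjusted p = 0.133) and on leaving out C2-Mes replicate 1 (0.171).

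Cell cycle genes were lower in C2-Mes, and more so in replicate 1. Among 35 members tested, 3 rose, 21 fell and 11 did not pass (median log2 -0.81), where 2 rose and 17 fell with library weights, and 0 and 11 in the fit of 4 libraries. MKI67 had 201 and 223 CPM in C2-Mes, against 433 and 467 CPM in C2-Epi (log2 -1.09), CCNB1, the mitotic cyclin, had 82.5 and 102 CPM in C2-Mes, against 248 and 230.2 CPM in C2-Epi (log2 -1.37) and PCNA, the replication clamp, had 95.7 and 95.0 CPM in C2-Mes, against 167 and 167 CPM in C2-Epi (log2 -0.81). The helicase subunits MCM4 and MCM7 were lowest in replicate 1: MCM4 had 91.0 and 161 CPM in C2-Mes, against 237 and 224 CPM in C2-Epi, and MCM7 had 73.5 and 144 CPM in C2-Mes, against 202 and 179.5 CPM in C2-Epi. The median log2 ratio of the list was -1.21 in replicate 1 and -0.55 in replicate 2. CCND1, cyclin D1, rose, with 461 and 601 CPM in C2-Mes, against 351 and 342 CPM in C2-Epi (log2 0.62). Of the inhibitors, 3 of 8 tested members rose and 1 fell (median log2 0.18; 3 and 1 with library weights, 2 and 0 from 4 libraries). CDKN2B, p15, had 223 and 137 CPM in C2-Mes, against 74.7 and 79.5 CPM in C2-Epi (log2 1.22). CDKN1A, the p53 target p21, had 992 and 378 CPM in C2-Mes, against 610.4 and 591 CPM in C2-Epi and CDKN2A had 59.7 and 173 CPM in C2-Mes, against 107 and 101 CPM in C2-Epi. In both genes the C2-Mes libraries lay on either side of C2-Epi and the test did not pass. The calls had an adjusted p no higher than 0.0122 (MCM7). MCM4, MCM7 and CCND1 were not called in the fit of 4 libraries (adjusted p = 0.126, 0.186 and 0.0927). The call of MKI67 was lost with library weights (adjusted p = 0.109) and on leaving out C2-Mes replicate 1 (0.0760) or C2-Mes replicate 2 (0.0658).

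Lists of chromatin complexes are described beside the shares of all tested genes, of which 21% rose and 18.6% fell. The first is PRC2, which methylates histone H3 to repress genes. Among 13 members tested, 3 rose, 5 fell and 5 did not pass (median log2 -0.36), where 2 rose and 3 fell with library weights, and 1 and 2 in the fit of 4 libraries. EED, the PRC2 subunit that is edited elsewhere in the series, had 11.2 and 12.5 CPM in C2-Mes, against 19.7 and 18.1 CPM in C2-Epi (log2 -0.67), and EZH2, its catalytic partner, had 21.4 and 23.7 CPM in C2-Mes, against 34.4 and 36.8 CPM in C2-Epi (log2 -0.66). The accessory subunits JARID2 and MTF2 fell (log2 -1.61 and -1.28), and PHF1, another accessory subunit, had 33.8 and 40.6 CPM in C2-Mes, against 21.4 and 18.9 CPM in C2-Epi (log2 0.89). For PRC1, 4 of 20 tested members rose and 3 fell (median log2 0.0256; 4 and 0 with library weights, 3 and 0 from 4 libraries). These shares are near those of all tested genes. CBX6 had 114 and 166 CPM in C2-Mes, against 60.1 and 59.5 CPM in C2-Epi (log2 1.22) and PHC2 had 189 and 263 CPM in C2-Mes, against 117 and 102 CPM in C2-Epi (log2 1.05). For the COMPASS complexes, 0 of 17 tested members rose and 1 fell (median log2 -0.054; 0 and 1 with library weights, 0 and 1 from 4 libraries). These are below the shares of all tested genes. KDM6A, the demethylase of these complexes, had 31.9 and 30.8 CPM in C2-Mes, against 53.3 and 57.6 CPM in C2-Epi (log2 -0.82), and KMT2D had 123 and 83.9 CPM in C2-Mes, against 116 and 115 CPM in C2-Epi and did not pass. For DNA methylation genes, 2 of 13 tested of 14 members rose and 2 fell, near the shares of all tested genes (median log2 0.0318; 0 and 0 with library weights, 0 and 0 from 4 libraries). DNMT1, the maintenance methyltransferase, had 142 and 157 CPM in C2-Mes, against 187 and 183 CPM in C2-Epi and did not pass. Adjusted p of the genes called was at most 0.00377 (EZH2). The call of EED was lost with library weights (adjusted p = 0.0650) and in the fit of 4 libraries (0.0754). The call of EZH2 was lost with library weights (adjusted p = 0.0560) and in the fit of 4 libraries (0.0665).

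Developmental transcription factors changed in both directions. Among 60 members tested of 77 listed, 21 rose, 13 fell and 26 did not pass (median log2 0), where 18 rose and 9 fell with library weights, and 16 and 9 in the fit of 4 libraries. NR2F1, an orphan nuclear receptor, had 57.0 and 227 CPM in C2-Mes, against 2.56 and 2.30 CPM in C2-Epi (log2 5.86), TBX18, a T-box factor of mesenchyme and mural cells, had 155 and 108 CPM in C2-Mes, against 0.686 and 0.845 CPM in C2-Epi (log2 7.42) and SIX2, a factor of progenitor mesenchyme in the kidney, had 36.6 and 45.2 CPM in C2-Mes, against 0.650 and 0.422 CPM in C2-Epi (log2 6.24). TBX3 had 158 and 109.6 CPM in C2-Mes, against 38.3 and 35.2 CPM in C2-Epi (log2 1.87). IRX2, an Iroquois factor, had 21.8 and 18.2 CPM in C2-Mes, against 167 and 181 CPM in C2-Epi (log2 -3.12), FOXA2, an endoderm factor, had 2.28 and 0.383 CPM in C2-Mes, against 30.9 and 34.2 CPM in C2-Epi (log2 -4.80), LHX6 had 0.409 and 0.0639 CPM in C2-Mes, against 13.1 and 13 CPM in C2-Epi (log2 -6.05) and PAX9 had 2.28 and 0.926 CPM in C2-Mes, against 11.1 and 13 CPM in C2-Epi (log2 -3.00). Among HOX genes, 13 of 30 tested of 39 members rose and 7 fell (median log2 0.11; 10 and 0 with library weights, 4 and 0 from 4 libraries). HOXC13 had 17.7 and 39.2 CPM in C2-Mes, against 16.4 and 14.9 CPM in C2-Epi, HOXC6 had 11.6 and 13.5 CPM in C2-Mes, against 4.69 and 4.80 CPM in C2-Epi (log2 1.41), and HOXC4 had 15.5 and 17.2 CPM in C2-Mes, against 24.1 and 22.0 CPM in C2-Epi (log2 -0.49). Calls here had an adjusted p of at most 0.0385 (HOXC4). The call of HOXC13 was lost in the fit of 4 libraries (adjusted p = 0.216) and on leaving out C2-Mes replicate 2 (0.559) or C2-Epi replicate 1 (0.0809) or C2-Epi replicate 2 (0.128). The call of HOXC4 was lost with library weights (adjusted p = 0.221) and in the fit of 4 libraries (0.145) and on leaving out C2-Epi replicate 1 (0.0957).

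Imprinted genes changed in nearly every member tested. Among 14 members tested of 20 listed, 9 rose, 4 fell and 1 did not pass (median log2 0.77), where 8 rose and 4 fell with library weights, and 3 and 2 in the fit of 4 libraries. PEG10, a retrotransposon-derived gene, had 222 and 487 CPM in C2-Mes, against 1241 and 1225 CPM in C2-Epi (log2 -1.80), MEST had 6.95 and 15.2 CPM in C2-Mes, against 56.7 and 56.5 CPM in C2-Epi (log2 -2.33) and the non-coding H19 had 22.5 and 2.71 CPM in C2-Mes, against 64.3 and 57.4 CPM in C2-Epi (log2 -2.32). GRB10, an adaptor that restrains growth signals, rose, with 45.3 and 42.7 CPM in C2-Mes, against 10.3 and 11.8 CPM in C2-Epi (log2 1.99). Of the luminal mammary genes, 6 of 18 tested of 21 members rose and 7 fell (median log2 -0.80; 5 and 6 with library weights, 5 and 5 from 4 libraries). GATA3, the luminal regulator, had 8.82 and 7.02 CPM in C2-Mes, against 1.70 and 0.999 CPM in C2-Epi (log2 2.54), MUC1 had 15.2 and 9.42 CPM in C2-Mes, against 1.99 and 1.69 CPM in C2-Epi (log2 2.73), and CD24, a luminal surface protein, had 0.584 and 0.543 CPM in C2-Mes, against 131 and 133 CPM in C2-Epi (log2 -7.87). Of the epidermal differentiation genes, 2 of 20 tested of 24 members rose and 9 fell (median log2 -1.55; 1 and 5 with library weights, 1 and 6 from 4 libraries). S100A14 had 1.69 and 1.53 CPM in C2-Mes, against 508 and 496 CPM in C2-Epi (log2 -8.29) and SFN, stratifin, had 47.9 and 123 CPM in C2-Mes, against 558 and 505 CPM in C2-Epi (log2 -2.63), while S100A4, a calcium-binding protein of motile cells, had 121 and 250.4 CPM in C2-Mes, against 20.1 and 18.9 CPM in C2-Epi (log2 3.25). Among the genes called, adjusted p reached 0.00530 (H19). H19 was not called in the fit of 4 libraries (adjusted p = 0.171).

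Genes of the unfolded protein response, which fold and fetch secreted proteins, rose or did not pass. Among 23 members tested, 14 rose, 0 fell and 9 did not pass (median log2 0.57), where 8 rose and 0 fell with library weights, and 5 and 0 in the fit of 4 libraries. With either C2-Mes library as the only one, 1 member fell, and 6 members had the C2-Mes libraries on opposite sides of C2-Epi. HSPA5, the BiP chaperone, had 1578 and 1616 CPM in C2-Mes, against 976 and 985 CPM in C2-Epi (log2 0.70), and the disulfide isomerases P4HB and PDIA6 rose by log2 1.25 and 1.40. HSP90B1 had 1120.5 and 1132 CPM in C2-Mes, against 1207 and 1255 CPM in C2-Epi and did not pass. Of the ATF4 targets, 9 of 22 tested members rose and 2 fell (median log2 0.14; 5 and 2 with library weights, 2 and 1 from 4 libraries). The amino acid transporter SLC7A5 had 199.6 and 222 CPM in C2-Mes, against 983 and 928 CPM in C2-Epi (log2 -2.18). Of the NRF2 and ferroptosis genes, 10 of 20 tested members rose and 3 fell (median log2 0.64; 9 and 3 with library weights, 6 and 3 from 4 libraries). The glutathione synthesis genes GCLC and GCLM fell: GCLC had 41.8 and 24.1 CPM in C2-Mes, against 172 and 196 CPM in C2-Epi (log2 -2.49), and GCLM had 21.3 and 14.7 CPM in C2-Mes, against 60.5 and 69.3 CPM in C2-Epi (log2 -1.86). FTL, ferritin light chain, had 2025 and 1058 CPM in C2-Mes, against 439 and 414 CPM in C2-Epi (log2 1.85), with replicate 1 the higher library. No named call had an adjusted p above 0.00333 (HSPA5).

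Hypoxia and glycolysis genes were mixed. Among 25 members tested, 12 rose, 4 fell and 9 did not pass (median log2 0.45), where 9 rose and 3 fell with library weights, and 8 and 2 in the fit of 4 libraries. NDRG1 had 218 and 71.1 CPM in C2-Mes, against 1015 and 973 CPM in C2-Epi (log2 -2.78), VEGFA had 234 and 123 CPM in C2-Mes, against 291 and 332 CPM in C2-Epi (log2 -0.81), and CA12, a carbonic anhydrase, had 457 and 291 CPM in C2-Mes, against 78.3 and 79.3 CPM in C2-Epi (log2 2.25). GAPDH had 4145 and 4613 CPM in C2-Mes, against 2852 and 2655 CPM in C2-Epi (log2 0.67), and LDHA had 1827 and 1794 CPM in C2-Mes, against 1966 and 1961 CPM in C2-Epi and did not pass. In cholesterol and fatty acid synthesis, where the C2-Mes libraries parted, 7 of 25 tested members rose and 3 fell (median log2 0.30; 6 and 3 with library weights, 3 and 1 from 4 libraries). SCD, the stearoyl desaturase, rose in both libraries, with 6700.2 and 8093 CPM in C2-Mes, against 2839 and 2762 CPM in C2-Epi (log2 1.40). FDPS, which makes farnesyl diphosphate, had 242 and 880.2 CPM in C2-Mes, against 418 and 393 CPM in C2-Epi, and HMGCS1, the HMG-CoA synthase chosen after its values were seen, had 114 and 470.3 CPM in C2-Mes, against 440.1 and 451 CPM in C2-Epi. FDFT1, squalene synthase, had 130.0 and 334 CPM in C2-Mes, against 564 and 548 CPM in C2-Epi (log2 -1.26). The median log2 ratio of the cholesterol list to C2-Epi was -0.39 in replicate 1 and 0.58 in replicate 2. Every call named had an adjusted p of 0.0197 (VEGFA) or less. FDFT1 was not called in the fit of 4 libraries (adjusted p = 0.135). The call of VEGFA was lost in the fit of 4 libraries (adjusted p = 0.180) and on leaving out C2-Mes replicate 2 (0.0674) or C2-Epi replicate 2 (0.0917).

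Few ribosomal protein genes passed. Among 32 members tested, 3 rose, 0 fell and 29 did not pass (median log2 0.20), where 0 rose and 0 fell with library weights, and 0 and 0 in the fit of 4 libraries. RPL4 had 2315 and 1864 CPM in C2-Mes, against 1767 and 1692 CPM in C2-Epi and did not pass. Of the mitochondrially encoded genes, 5 of 13 tested members rose and 1 fell (median log2 0.58; 1 and 1 with library weights, 1 and 1 from 4 libraries). MT-CYB had 10053 and 6977 CPM in C2-Mes, against 3429 and 3399 CPM in C2-Epi (log2 1.32), and MT-ND6, encoded on the other strand of the mitochondrial genome, had 155 and 153 CPM in C2-Mes, against 385 and 392 CPM in C2-Epi (log2 -1.34). Replicate 1 was the higher library in MT-CO1, with 26472 and 17380.2 CPM in C2-Mes, against 14234 and 14686 CPM in C2-Epi, and in MT-ND4, with 21168 and 10513 CPM in C2-Mes, against 8491 and 9292 CPM in C2-Epi. With MT-ND4 the highest adjusted p of the named calls was 0.0378. The call of MT-CO1 was lost with library weights (adjusted p = 0.0548) and in the fit of 4 libraries (0.160) and on leaving out C2-Mes replicate 1 (0.516) or C2-Epi replicate 1 (0.200) or C2-Epi replicate 2 (0.151). The call of MT-ND4 was lost with library weights (adjusted p = 0.117) and in the fit of 4 libraries (0.180) and on leaving out C2-Mes replicate 1 (0.720) or C2-Epi replicate 1 (0.228) or C2-Epi replicate 2 (0.146).

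The genes on which the C2-Mes libraries differed most were set out by size only, among genes with at least 10 CPM in a C2-Mes library, since 1 library against 1 has no replicate check. The replicate 1 side was led by CXCL2, a neutrophil chemokine, with 71.1 and 2.14 CPM in C2-Mes, against 4.22 and 4.38 CPM in C2-Epi (log2 of replicate 1 over replicate 2 5.0), SAA1, an acute-phase protein, with 10.5 and 0.255 CPM in C2-Mes, against 26.6 and 24.7 CPM in C2-Epi (4.98), and ADH1B, given above (4.70). KYNU, of tryptophan breakdown, had 234 and 17.8 CPM in C2-Mes, against 0.180 and 0.115 CPM in C2-Epi (3.72), and PURPL, a non-coding RNA induced by p53, had 17.3 and 1.53 CPM in C2-Mes, against 0.686 and 1.04 CPM in C2-Epi (3.43). MDM2, the p53 ubiquitin ligase, had 948 and 99.0 CPM in C2-Mes, against 770.3 and 948 CPM in C2-Epi (3.26), and MSRB3-AS1 had 17.9 and 1.18 CPM in C2-Mes, against 0.0361 and 0.154 CPM in C2-Epi (3.84). With replicate 2 as the only mesenchymal library CXCL2 was below C2-Epi (log2 -1.11), the reverse of its call. CXCL8 (3.56), C3 (3.42) and SOD2 (3.10) complete the 10 genes named above that level. MME, the peptidase CD10, rose in both libraries but was far higher in replicate 1, with 1933 and 286 CPM in C2-Mes, against 20.3 and 18.1 CPM in C2-Epi (log2 against C2-Epi 5.86). The calls had an adjusted p no higher than 0.0283 (SAA1). MSRB3-AS1 was not called in the fit of 4 libraries (adjusted p = 0.0638). The call of CXCL2 was lost with library weights (adjusted p = 0.424) and in the fit of 4 libraries (0.229) and on leaving out C2-Epi replicate 1 (0.105) or C2-Epi replicate 2 (0.10). The call of SAA1 was lost in the fit of 4 libraries (adjusted p = 0.307) and on leaving out C2-Epi replicate 1 (0.0844) or C2-Epi replicate 2 (0.0746). The call of PURPL was lost with library weights (adjusted p = 0.0828) and in the fit of 4 libraries (0.124) and on leaving out C2-Mes replicate 1 (0.309) or C2-Epi replicate 1 (0.0721).

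On the replicate 2 side stood several pseudogenes of EEF1A1 and copies of mitochondrial genes. Their reads can come from the parent genes, which was not tested. These were EEF1A1P35, EEF1A1P9, EEF1A1P13, MTRNR2L12, MTCO2P12 and MTND4P12, with log2 ratios of replicate 1 over replicate 2 between -5.05 and -2.73. The other genes of the 10 on this side, all with at least 10 CPM in a C2-Mes library, were COL1A2 (-3.30), CAMK2B, a calmodulin-dependent kinase of neurons, with 1.40 and 13.9 CPM in C2-Mes, against 111 and 93.6 CPM in C2-Epi (-3.24), GAP43, a growth cone protein, with 2.34 and 20.6 CPM in C2-Mes, against 0.0361 and 0 CPM in C2-Epi (-3.10), and FGFBP1 (-2.66). No gene was at least 4-fold above both C2-Epi libraries in 1 C2-Mes library and at least 4-fold below both in the other. At 2-fold, chosen after the values were seen, 6 genes were: IL6, higher in replicate 1, and AGR2, RND2, MVD, TMSB4XP6 and BCYRN1, higher in replicate 2. AGR2, a secretory isomerase of luminal cells, had 10.4 and 50.2 CPM in C2-Mes, against 21.7 and 22.0 CPM in C2-Epi, and MVD, of cholesterol synthesis, had 21.2 and 122 CPM in C2-Mes, against 59.0 and 54.2 CPM in C2-Epi. At any size, 3479 tested genes (19%) had 1 C2-Mes library above and the other below both C2-Epi libraries. Adjusted p of the genes called was at most 2.04e-04 (CAMK2B). CAMK2B was not called in the fit of 4 libraries (adjusted p = 0.0677).

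The C2 change was compared with the mean of the sgEED and the sgKMT2D changes from their epithelial to their mesenchymal groups, which share no library with C2. The difference between them passed for 2156 genes above 0 (11.8% of 18285) and 2084 below 0 (11.4%). By the largest differences above 0 among genes with at least 10 CPM on average in 1 of the 6 groups, TTN, titin, had 114 and 109.5 CPM in C2-Mes, against 0 and 0.115 CPM in C2-Epi, with group means of 0 CPM in C1-sgEED-Mes against 0.0351 CPM in C1-sgEED-Epi and 0.214 CPM in C1-sgKMT2D-Mes against 0.0398 CPM in C1-sgKMT2D-Epi (interaction log2 11.19 ± 1.97, adjusted p = 0.00124). COL14A1, given above for C2, had 1.82 CPM in C1-sgEED-Mes against 0.546 CPM in C1-sgEED-Epi and 0.386 CPM in C1-sgKMT2D-Mes against 0.137 CPM in C1-sgKMT2D-Epi (interaction log2 10.61), and ABCC9, a potassium channel regulator of mural cells, had 13.7 and 10.9 CPM in C2-Mes, against 0 and 0.0768 CPM in C2-Epi, with 0.0440 CPM in C1-sgEED-Mes against 0.0190 CPM in C1-sgEED-Epi and 0 CPM in C1-sgKMT2D-Mes against 0.0398 CPM in C1-sgKMT2D-Epi (9.26). CNTN3 had 24.6 and 7.18 CPM in C2-Mes, against 0.0722 and 0.0384 CPM in C2-Epi, with 7.60 CPM in C1-sgEED-Mes against 2.46 CPM in C1-sgEED-Epi and 0.0219 CPM in C1-sgKMT2D-Mes against 1.24 CPM in C1-sgKMT2D-Epi (9.98), and PCBP3 had 17.1 and 9.48 CPM in C2-Mes, against 0 and 0.0768 CPM in C2-Epi, with 0.0181 CPM in C1-sgEED-Mes against 0.0190 CPM in C1-sgEED-Epi and 0 CPM in C1-sgKMT2D-Mes against 0.0398 CPM in C1-sgKMT2D-Epi (9.79). DCN was also higher in the other mesenchymal groups, with 194 CPM in C1-sgEED-Mes against 10.1 CPM in C1-sgEED-Epi and 765 CPM in C1-sgKMT2D-Mes against 15.8 CPM in C1-sgKMT2D-Epi, and its interaction (10.40) was fitted against 0 counts in C2-Epi.

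Below 0, ITGA11, a collagen receptor chain, was at 0 counts in both C2-Mes libraries and 0 and 0.0768 CPM in C2-Epi, with 561 CPM in C1-sgEED-Mes against 0.129 CPM in C1-sgEED-Epi and 2.07 CPM in C1-sgKMT2D-Mes against 0.285 CPM in C1-sgKMT2D-Epi (interaction log2 -10.54). FXYD6 had 0 counts in both C2-Mes libraries and 0.902 and 0.538 CPM in C2-Epi, with 19.4 CPM in C1-sgEED-Mes against 1.01 CPM in C1-sgEED-Epi and 2.56 CPM in C1-sgKMT2D-Mes against 0.0973 CPM in C1-sgKMT2D-Epi (-11.67), and TSPAN2 had 0 counts in C2-Mes and 1.16 and 1.77 CPM in C2-Epi, with 46.3 CPM in C1-sgEED-Mes against 5.12 CPM in C1-sgEED-Epi and 2.37 CPM in C1-sgKMT2D-Mes against 2.79 CPM in C1-sgKMT2D-Epi (-9.67). HLA-DPB1, ZNF704 and ZNF677 had 0 counts in C2-Mes: HLA-DPB1 had 12.6 CPM in C1-sgEED-Mes against 7.30 CPM in C1-sgEED-Epi and 8.16 CPM in C1-sgKMT2D-Mes against 4.64 CPM in C1-sgKMT2D-Epi (-10.35), ZNF704 had 24.1 CPM in C1-sgEED-Mes against 20.0 CPM in C1-sgEED-Epi and 17.6 CPM in C1-sgKMT2D-Mes against 14.3 CPM in C1-sgKMT2D-Epi (-10.82) and ZNF677 had 1.37 and 1.27 CPM in C2-Epi and 5.83 CPM in C1-sgEED-Mes against 10.2 CPM in C1-sgEED-Epi and 4.69 CPM in C1-sgKMT2D-Mes against 0.131 CPM in C1-sgKMT2D-Epi (-10.21). A fitted fold against a group at 0 counts depends on the prior count and is no bound. The highest adjusted p of these 12 interactions was 0.0215.

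**Figure D4:**
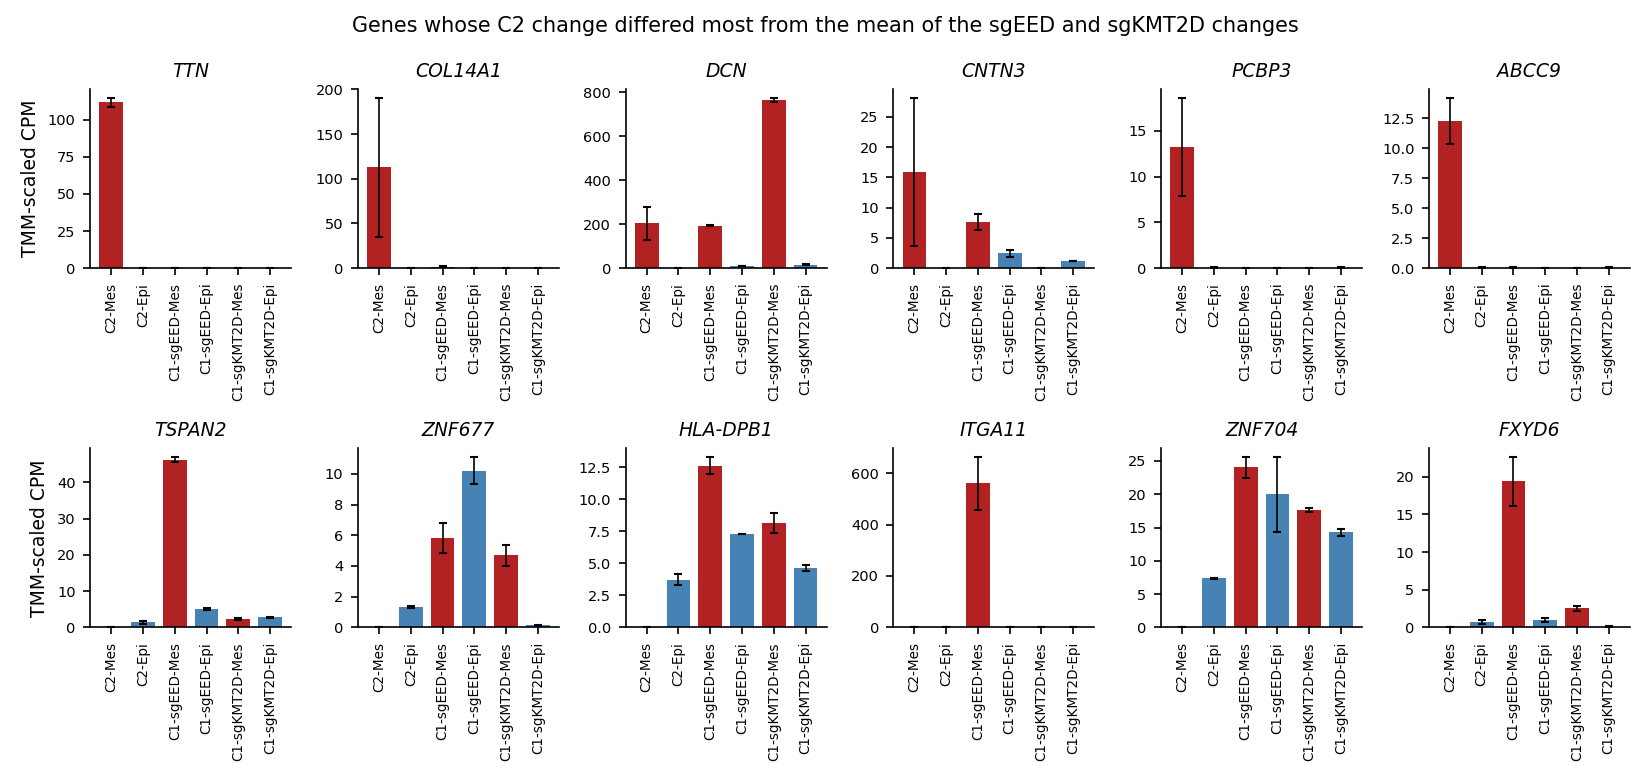
Mean level (bars, TMM-scaled CPM) and SD of the 2 libraries (lines) in C2-Mes, C2-Epi, C1-sgEED-Mes, C1-sgEED-Epi, C1-sgKMT2D-Mes and C1-sgKMT2D-Epi for the 6 genes with the largest interaction above 0 (upper row) and below 0 (lower row), mesenchymal groups in red and epithelial groups in blue. TTN, PCBP3 and ABCC9 stand out in C2-Mes, DCN is high in all mesenchymal groups, and ITGA11 and TSPAN2 are high in C1-sgEED-Mes.

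The changes lay on all chromosomes, with an imbalance on chromosomes 9 and 13. On chromosome 9, 32.2% of 729 tested genes rose and 12.1% fell, with a median log2 of 0.32 (0.24 for replicate 1 and 0.38 for replicate 2). On chromosome 13, 12.2% of 337 genes rose and 31.8% fell, with a median log2 of -0.30 (-0.36 and -0.30). Chromosome 19 had a median of 0.23, but of 0.062 in replicate 1 and 0.29 in replicate 2. The medians of the other autosomes and of chromosome X lay between -0.10 and 0.13. In 6 segments of equal gene number along chromosome 9 (genes with at least 5 CPM on average), the segments up to position 79726882 had medians between -0.057 and 0.059, and those from position 81583683 to the end between 0.27 and 0.80. Along chromosome 13 the medians lay between -0.57 and -0.26 up to position 102679958 and between -0.16 and -0.075 beyond it (GRCh38, GENCODE). Relative to C1, the chromosome 9 genes had medians of 0.20 and 0.30 in the C2-Mes libraries and -0.13 and -0.13 in the C2-Epi libraries, and the chromosome 13 genes 0.06 and -0.03 in C2-Mes and 0.31 and 0.43 in C2-Epi. These values share the C1 libraries, and other groups moved too: chromosome 9 was at -0.0734 and -0.0775 in C1-sgKMT2D-Mes against 0.13 and 0.15 in C1-sgKMT2D-Epi, and chromosome 13 at 0.0126 and 0.21 in C1-sgEED-Mes against -0.63 and -0.75 in C1-sgEED-Epi.

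**Figure D5:**
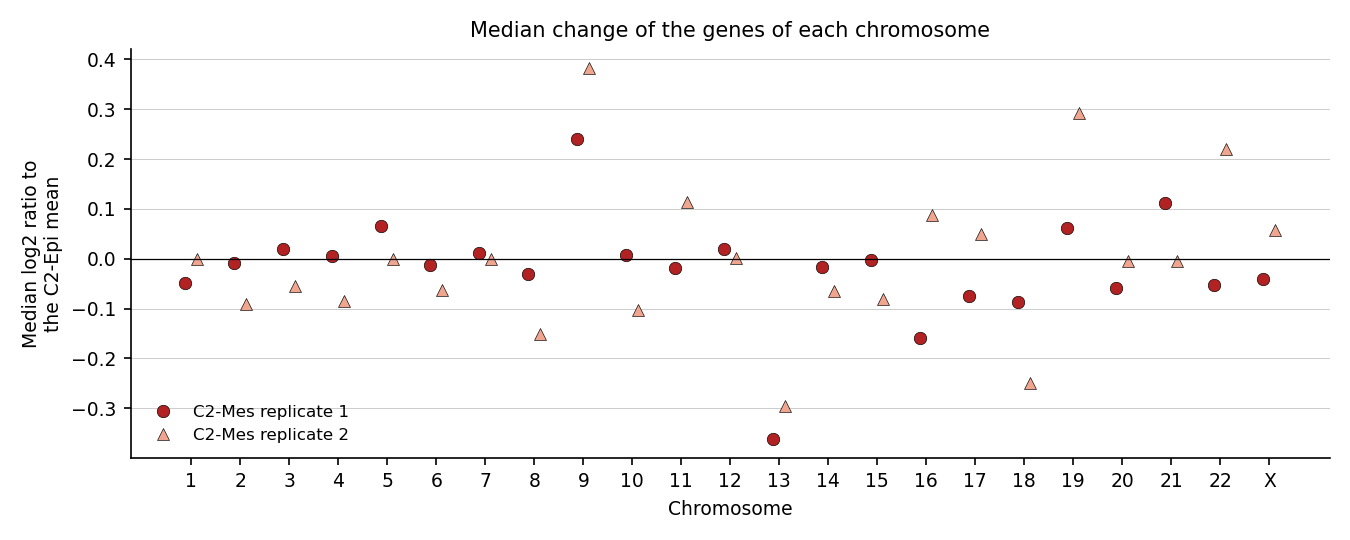
Median log2 ratio to the C2-Epi mean over the tested genes of each chromosome, for C2-Mes replicate 1 (circle) and replicate 2 (triangle). Chromosome 9 lies highest in both libraries and chromosome 13 lowest, while the libraries differ most on chromosomes 16, 19 and 22.

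Markers of other cell types were set beside the mesenchymal genes. Of the endothelial markers, 4 of 7 tested of 12 members rose and 1 fell (median log2 2.86; 4 and 1 with library weights, 4 and 1 from 4 libraries). ROBO4 had 46.1 and 70.1 CPM in C2-Mes, against 7.11 and 5.15 CPM in C2-Epi (log2 3.24), PECAM1 had 16.6 and 25.5 CPM in C2-Mes, against 3.29 and 2.5 CPM in C2-Epi (log2 2.86), CDH5, the defining endothelial cadherin, had 0 counts in all 4 libraries, and ERG, an endothelial ETS factor, had 0 counts in both C2-Mes libraries and 1.01 and 1.19 CPM in C2-Epi. Their summed level was 66.1 and 103 CPM in C2-Mes, against 11.8 and 9.22 CPM in C2-Epi. Of the neural markers, 5 of 7 tested of 13 members rose and 1 fell (median log2 1.80; 4 and 1 with library weights, 4 and 1 from 4 libraries). SYT1, synaptotagmin, had 142 and 72.5 CPM in C2-Mes, against 28.3 and 33.3 CPM in C2-Epi (log2 1.80), and MBP, myelin basic protein, had 24.6 and 25.3 CPM in C2-Mes, against 50.0 and 49.7 CPM in C2-Epi (log2 -1.0). RBFOX3, STMN2 and SOX10 had 0 counts in both C2-Mes libraries. The summed level of the neural markers was 182 and 120.2 CPM in C2-Mes, against 83.1 and 87.5 CPM in C2-Epi. Of the striated muscle markers, 1 of 5 tested of 12 members rose and 1 fell (median log2 -0.088; 1 and 0 with library weights, 1 and 0 from 4 libraries). The member that rose was TTN, given above, and MYOD1, MYF5 and MYOG had 0 counts in both C2-Mes libraries. Their summed level, mostly TTN, was 117 and 113 CPM in C2-Mes, against 4.26 and 4.07 CPM in C2-Epi. Of the adipocyte and fibroblast genes, 8 of 11 tested of 14 members rose and 1 fell (median log2 3.75; 8 and 0 with library weights, 7 and 1 from 4 libraries). PPARG, the adipocyte nuclear receptor, had 66.0 and 68.6 CPM in C2-Mes, against 8.88 and 8.87 CPM in C2-Epi (log2 2.92), and DPP4, a fibroblast surface peptidase, had 1.28 and 7.15 CPM in C2-Mes, against 0 CPM in both C2-Epi libraries, at least 37.7-fold higher on the mean and 11.5-fold in the lower library. ADIPOQ, the defining adipocyte hormone, had 0 counts in all 4 libraries. The summed level of this list was 191 and 288 CPM in C2-Mes, against 17.4 and 16.6 CPM in C2-Epi. The part of other cells in these levels was not tested. Of the cancer-testis genes, 1 of 2 tested of 26 members rose and 0 fell (median log2 1.68; 1 and 0 with library weights, 1 and 0 from 4 libraries). The member that rose was TEX15, a meiotic gene, with 6.95 and 1.92 CPM in C2-Mes, against 0.361 and 0.269 CPM in C2-Epi. No named call had an adjusted p above 0.00173 (TEX15). The call of TEX15 was lost on leaving out C2-Mes replicate 1 (adjusted p = 0.0768).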

How the data were processed

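Gene expression was measured by RNA-seq in HMLER-derived cells. Each of the 16 libraries has its own file of raw counts per Ensembl gene, as deposited. The authors made these counts with STAR 2.7.1a and featureCounts on GRCh38, per the submitters' processing notes. The annotation, the use of strand and the handling of reads with several matches are not given in the sources used here, so overlapping, antisense and near-identical genes are uncertain. Gene names were current symbols, or the GENCODE 29 name where there was none, and gene types and positions came from GENCODE 29. It holds 56868 of the 60448 IDs (94.1%), and the other 3580 took at most 0.0463% of counts in any library.

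Genes with enough counts by edgeR's filterByExpr were fitted in 1 quasi-likelihood model over all 8 groups (edgeR 4.0.16, R 4.3.3), with TMM scaling and Benjamini-Hochberg adjustment over 18285 genes, and called under 0.05. Levels are TMM-scaled CPM, and ratios of single libraries used a prior count of 2. The fit was run on simulated data with the same spread in every group. Such data cannot show how the wider spread of C2-Mes affects the calls. Alternatives used DESeq2 1.42.0, limma 3.58.1 with library weights, other scaling, no filter, GC and length terms, a replicate block and fewer libraries. The lists (60, with 1227 distinct members, of which 1070 were tested) describe and carry no test. The comparison, members and lists were chosen with earlier results of these data known. Genes were named by rule: the 12 highest and 12 lowest changes with at least 5 CPM, up to 5 called members a direction and up to 3 uncalled ones of a list by level, 19 fixed genes, the 10 largest differences a direction between the C2-Mes libraries (at least 10 CPM in either) and the 6 largest interactions a direction (a group mean of at least 10 CPM). Clone-based, LINC, microRNA and small RNA names were left out of these rankings. Some genes that the rule names are not reported here. Promoters and miRNAs are from RefSeq (GRCh38.p14). The SE of a fitted change covers counting error and the spread between replicate libraries, pooled over all groups, of which C2-Mes varied most. Floors cover counting error only.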

Additional observations from a re-analysis of the deposited data

Results flagged for a closer look

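In 12 genes the C2 change differed from the mean of the sgEED and sgKMT2D changes by the largest amounts among genes that passed and averaged at least 10 CPM in 1 of the 6 groups (edgeR interaction test, log2, with adjusted p of at most 0.0215). Above 0 were TTN (11.19), COL14A1 (10.61), DCN (10.40), CNTN3 (9.98), PCBP3 (9.79) and ABCC9 (9.26). Below 0 were FXYD6 (-11.67), ZNF704 (-10.82), ITGA11 (-10.54), HLA-DPB1 (-10.35), ZNF677 (-10.21) and TSPAN2 (-9.67). In the 6 genes above 0 neither C2-Epi library exceeded 0.115 CPM (TTN), in the 6 below 0 both C2-Mes libraries had 0 counts, and fitted values of this size depend on the prior count. No group of these data has the 4 libraries that a check for outlying samples would need.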

How the results depend on the processing

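Between 2549 and 3923 genes rose and between 2822 and 4682 fell when each C2 library was left out in turn, and the interaction passed for 1325 to 3037 genes above 0 and 1481 to 3178 below 0. From the 4 compared libraries alone, 1812 genes rose and 1549 fell, and the members of all lists gave 229 that rose and 189 that fell, against 378 and 287 from all libraries. With library weights 1836 genes fell, and the interaction below 0 passed for 1163. RLE scaling (3884 rose, 3430 fell), no filter (3596 and 4004), DESeq2 (3846 and 3459) and the GC and length correction (4557 and 4124) stayed within 1.5 times. The median of chromosome 9 was between 0.20 and 0.27 with a library left out, and that of chromosome 13 between -0.43 and -0.37. Without a filter the medians were 0.23 and -0.39, and from 4 libraries 0.33 and -0.38. Each covers the chromosome's genes tested in the fit of all libraries, as far as the alternative also tested them. The share of promoters with the wider CANNTG was 63.9% among genes that fell, 59.4% among those that rose and 61% of all.

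With the replicate number as a replicate block, 3731 genes rose and 3407 fell. The numbers were not taken to pair the samples: the deviations of replicate 1 in C2-Mes and in C2-Epi correlated at -0.371, and over 28 pairs of groups between -0.371 and 0.344, with 4 above 0.1.

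Direction changed under an alternative for these named genes (log2 values), of which CXCL2 alone was called in the fit of all libraries. With a library left out the lowest and highest values were ACTA2 -0.0077 and 0.80, AGR2 -1.11 and 1.09, C3 -2.78 and 0.71, CDKN1A -0.78 and 0.68, CDKN2A -0.84 and 0.62, CTNNA1 -0.19 and 0.35, CXCL2 -1.11 and 4.00, EEF1A1P13 -2.36 and 0.34, EEF1A1P35 -5.16 and 0.14, FDPS -0.79 and 1.01, IL6 -1.99 and 2.58, KMT2D -0.57 and 0.0555, MDM2 -3.23 and 0.10, MVD -1.46 and 1.00, NFKBIA -1.17 and 0.28, PKP1 -0.32 and 0.0853, PPL -0.25 and 0.54, RPL4 -0.00097 and 0.38, RUNX1 -0.73 and 0.29 and SERPINH1 -0.12 and 1.14. With library weights the direction turned for CDKN1A (-0.0081), IL6 (-0.17) and MVD (-0.035). With the GC and length correction the direction turned for PKP1 (0.0042) and PLEC (-0.058). The cause was not tested. The depth of C2-Mes replicate 1, the shallowest library, limits genes near 0, and 2 libraries a group limit all tests. A fit that leaves 1 library in a C2 group takes its spread from the other groups, so its counts are no test of that library.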

Other observations

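By gene type, protein-coding genes gave 3292 that rose and 2846 that fell of 13993 tested. Of 945 long intergenic non-coding RNAs, 171 rose and 163 fell, and of 1044 antisense genes, 147 rose and 159 fell. Processed pseudogenes, copies of spliced transcripts, gave 36 that rose and 39 that fell of 888 tested. Reads of antisense genes and pseudogenes can come from their partner or parent gene, which was not tested.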
